A study of Mus musculus with 28 samples.

Results

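The tumors compared here were AB1-HA mesotheliomas from mice that received 5-fluorouracil (5-FU) alone, 5 tumors, or phosphate-buffered saline (PBS), 4 tumors. They were chosen by their GEO titles and make up 9 of the 28 tumors of the series, and 17916 of 55341 genes passed the filter on low counts. AB1-HA is a murine mesothelioma line that carries the influenza hemagglutinin gene as a model tumor antigen. All mice were female BALB/c.AusBP animals of 8 to 10 weeks with 500000 cells inoculated under the skin of the flank. Treatment began when tumors measured 20 to 25 mm2. 5-FU was given intravenously at 75 mg/kg and PBS intraperitoneally, so that drug and route cannot be told apart. Whole tumors were collected on day 7 after treatment, 1 mouse for each sample, and RNA of all cells of the tumor was sequenced. The 5-FU tumors were also compared directly with 5 tumors of mice given immune checkpoint blockade (ICB, anti-CTLA-4 and anti-PD-L1 at 100 µg) and 4 tumors of mice given cisplatin at 6 mg/kg. The question was which genes differed between tumors treated with 5-FU alone and tumors of mice given PBS.

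5-FU is a fluorinated uracil that cells convert to fluorinated nucleotides. A deoxynucleotide made from it blocks thymidylate synthase, the enzyme that makes the thymidine nucleotide for DNA, and other products are built into RNA and DNA. The drug acts mainly on dividing cells, and in a tumor these include tumor cells and some of the leukocytes and stromal cells between them. A bulk tumor sample holds all of these cells, so fewer cells of a type and less RNA per cell cannot be told apart in any result given here.

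Library totals were 26836269 to 31291619 counts in PBS tumors and 23541733 to 32424724 in 5-FU tumors, so that 3 counts, the level below which a gene was taken as not detectable, came to between 0.0925 and 0.127 CPM, that is, counts scaled to a common library total. The share of counts from mitochondrially encoded genes was 1.53 to 2.37% in PBS tumors and 2.72 to 6.8% in 5-FU tumors, highest in 5-FU replicate 3. The shortest quartile of protein-coding genes by transcript length held 28.4 to 40.5% of counts in PBS tumors and 26.7 to 35.8% in 5-FU tumors. The first principal component of the 9 tumors carried 50% of the variance, with 5-FU replicates 3 and 5 at its far end and 5-FU replicate 2 between the other 5-FU tumors and the PBS tumors. 5-FU replicate 2 had a mean Pearson correlation across genes of 0.961 with the PBS tumors and 0.959 with its own group. The ranges of genes with a count were 23633 to 24981 in PBS tumors and 24387 to 26349 in 5-FU tumors. The marker of the labelled tumor, mesothelin (Msln), was measured at 331, 372, 264 and 258 CPM in the PBS tumors and 130.2, 173, 44.8, 113 and 66.8 CPM in the 5-FU tumors. Wt1, a second mesothelial marker, was near the detection level in PBS tumors and the only member of its list that rose, with 0, 0.141, 0.165 and 0.126 CPM in the PBS tumors and 0.51, 0.458, 0.975, 0.468 and 1.26 CPM in the 5-FU tumors (log2 fold change 2.67 ± 0.66 (SE), adjusted p = 0.0109). Of 20 mesothelial and epithelial markers, 5 (Upk3b, Krt18, Lrrn4, Muc16 and Upk1b) were below the filter. Msln was lower in each 5-FU tumor than in every PBS tumor, but the difference did not pass the test (log2 fold change -1.54 ± 0.76 (SE), adjusted p = 0.136).

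In the comparison of 5-FU with PBS, 4115 genes were differentially expressed (DEGs: Benjamini-Hochberg adjusted p under 0.05 over all 17916 genes tested and an absolute log2 fold change over 0.5, edgeR quasi-likelihood test), which is 23% of the genes tested. Of these, 1788 genes (9.98%) were higher and 2327 (13%) were lower in 5-FU tumors. This balance turned with the method, since DESeq2 called 2646 higher and 2212 lower, and a model of the PBS and 5-FU tumors alone 2141 and 1753. The median log2 fold change over all genes was -0.00598. Higher genes had the larger changes: 1350 genes rose and 484 fell by more than 1 on the log2 scale, and 137 rose and 12 fell by more than 3. In 4437 genes (24.8%) the 5 and the 4 tumors did not overlap, with 5-FU above PBS in 10.4% and below PBS in 14.4% of genes. The number of DEGs moved by more than 1.5 times when single tumors were left out: it was 2512 without 5-FU replicate 5, 1919 without PBS replicate 1 and 1436 without PBS replicate 2. With 5-FU replicates 3 and 5, the tumors farthest out on the first principal component, both left out, a choice made after the values were seen, 347 genes passed (119 higher and 228 lower). In none of these 4 fits was a gene called here called in the opposite direction.

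**Figure D1:**
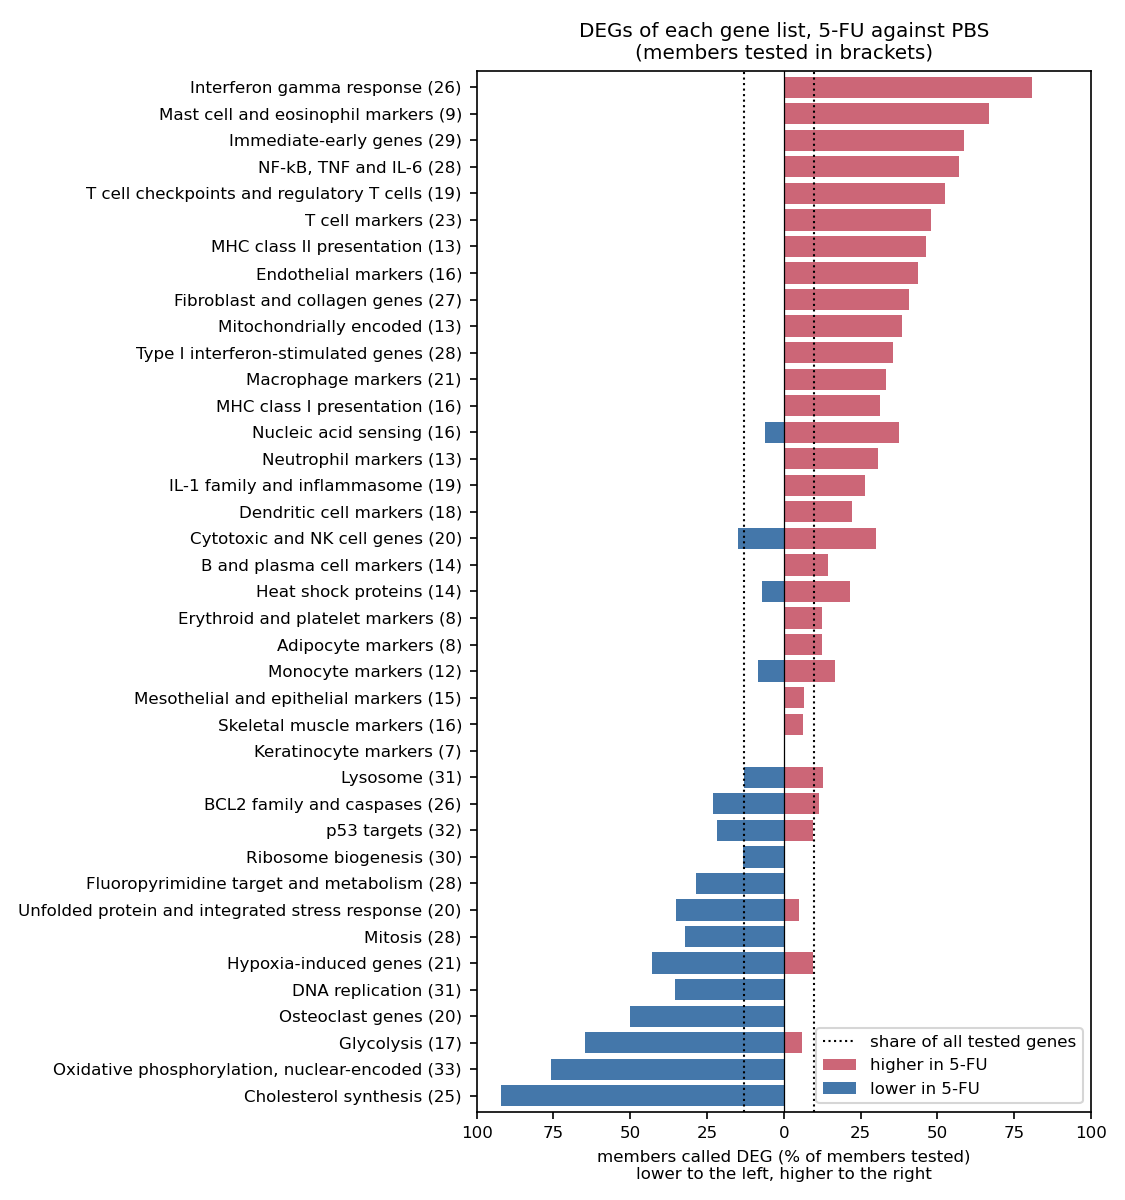
Share of each gene list that was differentially expressed between 5-FU and PBS tumors. Bars give the percentage of the tested members called higher (right) or lower (left) in 5-FU tumors, the number tested is in brackets, and dotted lines mark the shares over all genes tested, 9.98% higher and 13% lower. Cholesterol synthesis, with 23 of 25 members lower, and the interferon gamma response, with 21 of 26 higher, stand at the ends. The lists were chosen with earlier results of these data known, so the distance of a bar from the dotted line is not a test.

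Of the protein-coding DEGs whose mean count reached 50 and whose 5-FU values all lay on one side of the PBS values, the 8 largest decreases were those of Oscar, Slc9b2, Rufy4, Acp5, Col10a1, Cyp2s1, Car9 and Ctsk. Slc9b2, a sodium-proton exchanger of osteoclasts, was measured at 74.1, 83.5, 37.4 and 39.1 CPM in the PBS tumors and 4.83, 7.09, 1.29, 10.3 and 4.6 CPM in the 5-FU tumors (log2 fold change -3.38 ± 0.73 (SE), adjusted p = 0.00643). Rufy4, which takes part in autophagosome and lysosome traffic, was at 11.7, 10.3, 9.69 and 10.7 CPM in the PBS tumors and 0.994, 1.06, 0.177, 1.81 and 1.15 CPM in the 5-FU tumors (log2 fold change -3.34 ± 0.73 (SE), adjusted p = 0.00707). Cyp2s1, a cytochrome P450, was at 40.8, 25, 37.9 and 35.7 CPM in the PBS tumors and 4.43, 7.37, 1.2, 6.43 and 5.03 CPM in the 5-FU tumors (log2 fold change -2.83 ± 0.53 (SE), adjusted p = 0.00398). In each of these 3 genes all 5-FU tumors were below all PBS tumors, and 5-FU replicate 3 had the lowest value. Col10a1, the collagen of hypertrophic cartilage, was at 10.1, 23.5, 27.5 and 6.8 CPM in the PBS tumors and 1.72, 2.57, 1.42, 3.07 and 1.9 CPM in the 5-FU tumors (log2 fold change -2.98 ± 0.73 (SE), adjusted p = 0.0104), with PBS replicates 2 and 3 well above PBS replicates 1 and 4. Oscar, Acp5, Car9 and Ctsk are described with their groups below. The calls of Slc9b2, Rufy4, Cyp2s1 and Col10a1 held in all 9 fits that left out 1 tumor.

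By the same rule, the 8 largest increases were those of Fosb, Fcmr, H2-M2, Pou2af1, Ptx3, Col6a5, Dnase1l3 and Cyp2e1. Ptx3, a secreted pattern recognition protein, was at 0.123, 0.952, 0.264 and 0.315 CPM in the PBS tumors and 2.93, 13.2, 4.26, 4.82 and 39.5 CPM in the 5-FU tumors (log2 fold change 4.95 ± 0.96 (SE), adjusted p = 0.00428), highest in 5-FU replicate 5. Dnase1l3, a secreted nuclease of dendritic cells and macrophages, was at 0.78, 1.76, 1.38 and 0.851 CPM in the PBS tumors and 11, 6.1, 100.4, 4.44 and 32.8 CPM in the 5-FU tumors (log2 fold change 4.68 ± 1.04 (SE), adjusted p = 0.00741), highest in 5-FU replicate 3. Col6a5, a collagen VI chain, was at 0.0822, 0.353, 0.231 and 0.0945 CPM in the PBS tumors and 6.63, 0.811, 9.36, 2.43 and 8.62 CPM in the 5-FU tumors (adjusted p = 0.00991). No 5-FU tumor overlapped with PBS in these 3 genes, though the 5-FU tumors spread widely. Pou2af1, a coactivator of B cells, ranged over 0.0411 to 0.141 CPM in PBS and 0.585 to 9.22 CPM in 5-FU (adjusted p = 0.0418), and Fcmr, the Fc receptor for IgM, over 0.0353 to 0.165 CPM in PBS and 0.409 to 16.8 CPM in 5-FU (adjusted p = 0.0429). Pou2af1 was at or under 3 counts in 3 of the 4 PBS tumors, and Fcmr and Col6a5 each in 2, so that the size of their fitted change, and with it their place among the 8, depends on the prior count. H2-M2, a nonclassical MHC class I gene, ranged over 0.0988 to 0.212 CPM in PBS and 0.529 to 24.2 CPM in 5-FU (log2 fold change 5.33 ± 1.5 (SE), adjusted p = 0.0176), and Cyp2e1, a cytochrome P450 of liver and fat, over 0.0329 to 0.662 CPM in PBS and 1.76 to 20.4 CPM in 5-FU (log2 fold change 4.52 ± 1.55 (SE), adjusted p = 0.0406). In these 4 genes 5-FU replicates 3 and 5 were the highest, and all PBS tumors were under 1 CPM. The calls of Ptx3, Dnase1l3 and Col6a5 held in all 9 fits that left out 1 tumor, while that of H2-M2 was lost without PBS replicate 1 or 2 or 5-FU replicate 3 (adjusted p 0.0554 to 0.0614), that of Fcmr was lost without PBS replicate 1, 2, 3 or 4 or 5-FU replicate 3 or 5 (adjusted p 0.0681 to 0.125), that of Pou2af1 was lost without PBS replicate 1, 2, 3 or 4 or 5-FU replicate 3 or 5 (adjusted p 0.0748 to 0.107) and that of Cyp2e1 was lost without PBS replicate 1, 2, 3 or 4 or 5-FU replicate 1, 3 or 5 (adjusted p 0.0508 to 0.117).

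Genes of cholesterol synthesis were lower almost without exception. This pathway builds cholesterol from acetyl-CoA through mevalonate and squalene, and its genes share a regulator, SREBP2, that is activated when membrane cholesterol is low and held back by Insig proteins. Of 25 members tested, 23 were DEGs, all lower, against 13% of all genes called lower. The median log2 fold change was -1.60, and in 22 members every 5-FU tumor was below every PBS tumor, against 14.4% of all genes. None of the 25 had a higher mean. SREBP proteins bind sterol response elements, and the RefSeq promoters (250 bases before to 50 after the start site, build GRCm38.p6) were searched on both strands for TCACNCCAC. It was found in 1 of 17 members with a promoter entry, Hmgcs1, and in 1.23% of all tested genes with an entry. The stretch around that match is shown 5′ to 3′ on the gene's strand with the matched letters in capitals.
Hmgcs1, chr13:119690189-119690247, plus strand: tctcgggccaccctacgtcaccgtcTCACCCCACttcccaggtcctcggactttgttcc

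Hmgcs1, the synthase that makes HMG-CoA, was measured at 217, 184, 227 and 172 CPM in the PBS tumors and 49.7, 72.9, 45.4, 71.5 and 102 CPM in the 5-FU tumors (log2 fold change -1.55 ± 0.22 (SE), adjusted p = 0.000672). No value overlapped between groups, and the lowest tumors were 5-FU replicates 1 and 3. Downstream of mevalonate, Pmvk, which phosphorylates mevalonate phosphate, fell 2.74-fold (37.7 ± 9.74 CPM in PBS (SD, n = 4) and 13.8 ± 1.21 CPM in 5-FU (SD, n = 5), log2 fold change -1.45 ± 0.16, adjusted p = 0.000144). Fdps, the farnesyl diphosphate synthase, was at 361, 246, 287 and 229 CPM in the PBS tumors and 52.5, 94, 39, 58.2 and 59.2 CPM in the 5-FU tumors (log2 fold change -2.21 ± 0.31 (SE), adjusted p = 0.000672). Fdft1, the squalene synthase, was at 162, 157, 124 and 103 CPM in the PBS tumors and 30.9, 40.6, 26.1, 36.5 and 32.5 CPM in the 5-FU tumors (log2 fold change -2.03 ± 0.22 (SE), adjusted p = 0.000144). Sqle, which oxidizes squalene, was at 162, 128, 157 and 119.5 CPM in the PBS tumors and 33.1, 51.5, 25.4, 43.4 and 45.1 CPM in the 5-FU tumors (log2 fold change -1.83 ± 0.26 (SE), adjusted p = 0.000723). All of these steps showed complete separation of the groups.

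After squalene, Nsdhl, a dehydrogenase of the late pathway, fell 3.48-fold, with 84.3 ± 15.1 CPM in PBS (SD, n = 4) and 24.2 ± 3.62 CPM in 5-FU (SD, n = 5) (log2 fold change -1.80 ± 0.19, adjusted p = 0.000144). Tm7sf2, a sterol C14 reductase, had the largest decrease of the list, 5.29-fold, with 21.2, 27.4, 13.1 and 14.6 CPM in the PBS tumors and 2.98, 3.6, 3.59, 3.6 and 4.27 CPM in the 5-FU tumors (log2 fold change -2.40 ± 0.27 (SE), adjusted p = 0.000144). Every 5-FU tumor held less than every PBS tumor in both. Insig1, the sterol sensor whose gene is itself an SREBP target, was at 244, 315, 193 and 170.2 CPM in the PBS tumors and 44.4, 66.2, 43.9, 56.5 and 73.8 CPM in the 5-FU tumors (log2 fold change -2.02 ± 0.26 (SE), adjusted p = 0.00041). Srebf2, which encodes SREBP2, ranged over 160.5 to 339 CPM in PBS and 131 to 191 CPM in 5-FU (log2 fold change -0.74 ± 0.20 (SE), adjusted p = 0.0142), and the groups overlapped. Ebp, a sterol isomerase, did not pass the test (41.4 to 68.2 CPM in PBS and 31.5 to 48 CPM in 5-FU, adjusted p = 0.0585, its log2 fold change -0.54). Counts of lower members were 22 to 24 in the 9 fits that left out 1 tumor, 21 with 5-FU replicates 3 and 5 both left out and 23 with a correction for transcript length. The calls of Hmgcs1, Pmvk, Fdps, Fdft1, Sqle, Nsdhl, Tm7sf2, Insig1 and Srebf2 held in all 9 fits that left out 1 tumor.

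**Figure D2:**
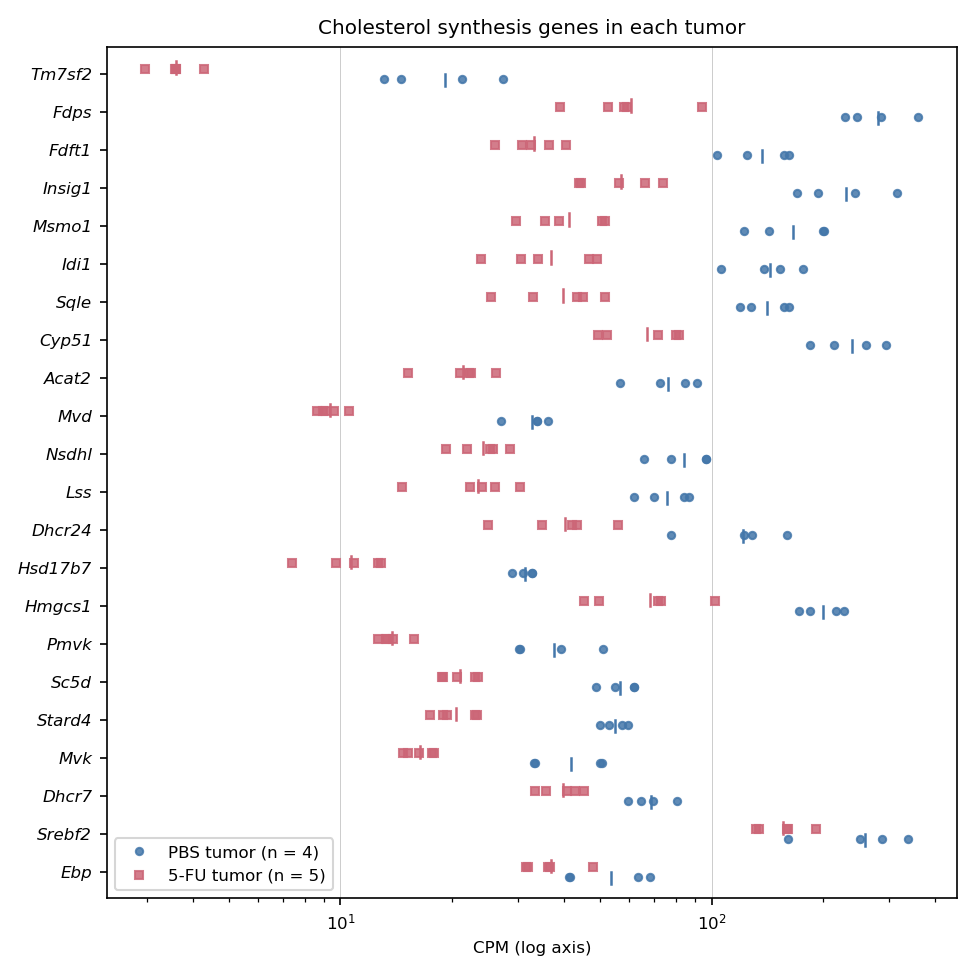
CPM (log axis) of 22 of the 25 tested cholesterol synthesis genes in each tumor, ordered by log2 fold change. Circles are the 4 PBS tumors, squares the 5 5-FU tumors and vertical ticks the group means. The groups do not overlap in 20 of the 22 genes drawn, and the gap is widest for Tm7sf2.

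Most of the glycolysis genes tested were lower. Glycolysis breaks glucose down to pyruvate, and lactate dehydrogenase turns pyruvate into lactate. Of 17 members tested, 11 fell and 1 rose, against 13% and 9.98% of all genes, and the median log2 fold change was -0.82. In all 11 that fell, the groups did not overlap. Pgk1, the phosphoglycerate kinase, was measured at 1074, 1240, 633 and 624 CPM in the PBS tumors and 334, 391, 376, 313 and 364 CPM in the 5-FU tumors (log2 fold change -1.33 ± 0.18 (SE), adjusted p = 0.000534). Eno1, enolase 1, was at 846, 860.4, 779.9 and 708 CPM in the PBS tumors and 421, 484, 328, 377 and 320.4 CPM in the 5-FU tumors (log2 fold change -1.05 ± 0.13 (SE), adjusted p = 0.00041). Pfkl, the liver-type phosphofructokinase, was at 134, 123, 139 and 129 CPM in the PBS tumors and 74.8, 75.2, 67.2, 64.8 and 72.3 CPM in the 5-FU tumors (log2 fold change -0.89 ± 0.13 (SE), adjusted p = 0.000983). The 5-FU tumors lay close together in these genes, with a spread smaller than the distance to PBS. Ldha, the lactate dehydrogenase subunit, was at 1216, 1541, 886 and 888 CPM in the PBS tumors and 552, 603, 613, 588 and 591 CPM in the 5-FU tumors (log2 fold change -0.94 ± 0.16 (SE), adjusted p = 0.00253), and Gapdh, often used as a reference gene, fell 1.82-fold, with 2765 ± 245 CPM in PBS (SD, n = 4) and 1516 ± 216 CPM in 5-FU (SD, n = 5) (log2 fold change -0.87 ± 0.14, adjusted p = 0.00161). Aldoc, an aldolase, had the largest decrease, 5.56-fold, over 8.63 to 15.1 CPM in PBS and 1.37 to 3.95 CPM in 5-FU (-2.47 ± 0.37, adjusted p = 0.00115). Slc2a1, the glucose transporter GLUT1, did not pass the test (52.1 to 66.4 CPM in PBS and 35.2 to 61.4 CPM in 5-FU, -0.34 ± 0.20, adjusted p = 0.218).

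The 1 member that rose was Hk2, a hexokinase that starts glycolysis, with 18.6, 11.7, 46.5 and 35.4 CPM in the PBS tumors and 42.1, 67.6, 61.8, 44.5 and 68.4 CPM in the 5-FU tumors (log2 fold change 1.02 ± 0.34 (SE), adjusted p = 0.0362). PBS replicates 1 and 2 were the lowest in this gene, and PBS replicate 3 overlapped with the 5-FU tumors. Lower glycolysis members numbered 11 in all 9 fits that left out 1 tumor, 10 with 5-FU replicates 3 and 5 both left out and 11 with the length correction. The calls of Pgk1, Eno1, Pfkl, Ldha, Gapdh and Aldoc held in all 9 fits that left out 1 tumor, while that of Hk2 was lost without PBS replicate 1 or 2 or 5-FU replicate 2, 3 or 5 (adjusted p 0.0599 to 0.12).

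Part of the genes induced by hypoxia was lower. Hypoxia-inducible factors accumulate when oxygen is low and bind ACGTG elements near genes of pH control, mitophagy, glucose use and vessel growth. Of 21 members tested, 9 fell, against 13% of all genes, 2 rose, near the 9.98% of all genes, and the median log2 fold change was -0.56. Car9, a membrane carbonic anhydrase that is a common marker of hypoxic tumor, was measured at 12.8, 24.8, 11.2 and 9.58 CPM in the PBS tumors and 2.34, 1.59, 2.57, 1.55 and 2.55 CPM in the 5-FU tumors (log2 fold change -2.78 ± 0.35 (SE), adjusted p = 0.000362). Pdk1, which keeps pyruvate out of the mitochondrion, was at 67.9, 93.5, 51.1 and 53.4 CPM in the PBS tumors and 17.7, 14.5, 16.4, 14.1 and 19.2 CPM in the 5-FU tumors (log2 fold change -2.02 ± 0.20 (SE), adjusted p = 0.000139). Bnip3, a mitophagy receptor, was at 126, 207, 65.6 and 69.2 CPM in the PBS tumors and 27.6, 17.7, 27.8, 20.6 and 32 CPM in the 5-FU tumors (log2 fold change -2.22 ± 0.33 (SE), adjusted p = 0.000983). PBS replicate 2 was the highest tumor in all 3 genes, and every 5-FU tumor lay below the lowest PBS tumor. Ankrd37, an ankyrin repeat protein induced by hypoxia, ranged over 2.8 to 8.82 CPM in PBS and 0.846 to 1.32 CPM in 5-FU (-2.19 ± 0.38, adjusted p = 0.00258). Vegfa, the vessel growth factor, did not pass the test (39.9 to 45.2 CPM in PBS and 13.7 to 43.2 CPM in 5-FU, -0.62 ± 0.33, adjusted p = 0.163), nor did Adm, adrenomedullin (4.98 to 6.29 CPM in PBS and 4.59 to 10.1 CPM in 5-FU, 0.24 ± 0.25, adjusted p = 0.48).

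The 2 that rose were Lox and P4ha2. Lox, lysyl oxidase, which crosslinks collagen, was at 34.1, 30.9, 27 and 33.5 CPM in the PBS tumors and 59.3, 35.3, 70.8, 65.3 and 93.1 CPM in the 5-FU tumors (log2 fold change 1.04 ± 0.33 (SE), adjusted p = 0.029), and P4ha2, a prolyl hydroxylase of collagen, ranged over 8.54 to 10.9 CPM in PBS and 11.2 to 19.4 CPM in 5-FU (0.66 ± 0.22, adjusted p = 0.0344). Those called lower among the members numbered 8 to 10 in the 9 fits that left out 1 tumor and 6 with 5-FU replicates 3 and 5 both left out. The number of higher members was 0 without PBS replicate 1 or 2 or 5-FU replicate 3 or 5 and 1 without PBS replicate 3 or 4 or 5-FU replicate 4. The calls of Car9, Pdk1, Bnip3 and Ankrd37 held in all 9 fits that left out 1 tumor, while that of Lox was lost without PBS replicate 1, 2 or 3 or 5-FU replicate 3 or 5 (adjusted p 0.0543 to 0.0828) and that of P4ha2 was lost without PBS replicate 1, 2 or 4 or 5-FU replicate 3, 4 or 5 (adjusted p 0.0529 to 0.105), and the length correction ended that of Lox (log2 fold change 0.88, adjusted p = 0.0655).

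The letters ACGTG were found in the promoters of 11 of 16 hypoxia members and 9 of 17 glycolysis members with an entry, and in 23.7% of all tested genes with one. The stretches of 4 members are shown to let the matches be read, on the gene's strand of GRCm38.p6, with matches on either strand in capitals. Of these, Car9, Bnip3 and Ldha fell, and Slc2a1 did not pass the test.
Car9, chr4:43506983-43507025, plus strand: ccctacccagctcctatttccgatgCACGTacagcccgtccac
Bnip3, chr7:138909584-138909639, minus strand: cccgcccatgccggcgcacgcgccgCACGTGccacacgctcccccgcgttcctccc
Slc2a1, chr4:119108684-119108738, plus strand: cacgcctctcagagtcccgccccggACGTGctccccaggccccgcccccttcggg
Ldha, chr7:46845634-46845799, plus strand: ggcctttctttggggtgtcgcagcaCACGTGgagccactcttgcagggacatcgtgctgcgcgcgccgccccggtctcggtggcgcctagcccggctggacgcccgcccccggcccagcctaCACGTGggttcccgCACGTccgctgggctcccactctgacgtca

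The subunits of oxidative phosphorylation that passed the test fell where they are nuclear-encoded and rose where they are mitochondrially encoded. Of 33 nuclear-encoded members tested, 25 fell, against 13% of all genes, and none rose, with a median log2 fold change of -0.69. Of 13 mitochondrially encoded members, 5 rose, against 9.98%, and none fell, with a median of 1.01. Sdhb, a subunit of succinate dehydrogenase, was measured at 219.5, 341, 149 and 145 CPM in the PBS tumors and 100.3, 114, 111, 92.1 and 95.4 CPM in the 5-FU tumors (log2 fold change -1.06 ± 0.20 (SE), adjusted p = 0.00342). Cyc1, cytochrome c1, was at 228, 277, 155 and 152 CPM in the PBS tumors and 107, 126, 103, 112 and 94.5 CPM in the 5-FU tumors (log2 fold change -0.90 ± 0.16 (SE), adjusted p = 0.00305). Cox4i1, a subunit of cytochrome c oxidase, was at 518, 769, 317 and 331 CPM in the PBS tumors and 219, 242, 296, 218 and 217 CPM in the 5-FU tumors (log2 fold change -1.02 ± 0.24 (SE), adjusted p = 0.00949). PBS replicates 1 and 2 were highest in each, PBS replicates 3 and 4 lay just above the 5-FU tumors, and no values overlapped. Sdha, another subunit of succinate dehydrogenase, did not pass the test (128 to 195 CPM in PBS and 154 to 186 CPM in 5-FU, 0.04 ± 0.17, adjusted p = 0.872). Of the mitochondrially encoded genes, mt-Nd4 was at 662, 573, 1377 and 1404 CPM in the PBS tumors and 2118, 2581, 5894, 2646 and 2620 CPM in the 5-FU tumors (log2 fold change 1.66 ± 0.54 (SE), adjusted p = 0.033), and mt-Co1, which encodes the core of cytochrome c oxidase, at 4861, 5200, 5101 and 6274 CPM in the PBS tumors and 6036, 6819, 19850, 8143 and 8322 CPM in the 5-FU tumors (log2 fold change 0.88 ± 0.54 (SE), adjusted p = 0.229). 5-FU replicate 3 was by far the highest tumor in both.

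Transcript length moved with the nuclear-encoded result. Of the 33 nuclear-encoded members, 24 were in the shortest quartile of protein-coding genes, and their median longest transcript was 1697 bases. The 13 mitochondrially encoded members were all in the shortest quartile as well (median 784 bases), and those of them that passed rose. Over all protein-coding genes the share called lower was 28.5% in the shortest quartile, 16.1%, 9.97% and 3.22% in the longest, while the share called higher went from 5.03% through 7.7% and 10.9% to 19.3%. PBS replicates 1 and 2 held 34.8 and 40.5% of their counts in the shortest quartile, above 5-FU replicates 1, 2, 4 and 5 (27.1, 28.4, 26.7 and 28.4%). PBS replicate 4 (30.1%) was also above them and PBS replicate 3 (28.4%) level with the highest of them, while 5-FU replicate 3 (35.8%) was above PBS replicates 1, 3 and 4. With a correction for the length trend of each tumor, added after the values were seen, 13 of the 33 members fell. Genes of ribosomal proteins, which are also short and which were likewise added after the values were seen, were lower in 62 of 79 and higher in none, with a median log2 fold change of -0.836. Counts of lower nuclear-encoded members were 10 without PBS replicate 2, and 3 with 5-FU replicates 3 and 5 both left out. Higher mitochondrially encoded members numbered 0 without PBS replicate 1 or 2 or 5-FU replicate 3, 1 without 5-FU replicate 5, 2 without PBS replicate 3 or 4 or 5-FU replicate 4 and 3 without 5-FU replicate 2. The calls of Sdhb and Cyc1 held in all 9 fits that left out 1 tumor, while that of Cox4i1 was lost without PBS replicate 2 (adjusted p = 0.0502) and that of mt-Nd4 was lost without PBS replicate 1 or 2 or 5-FU replicate 3 or 5 (adjusted p 0.052 to 0.114).

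**Figure D3:**
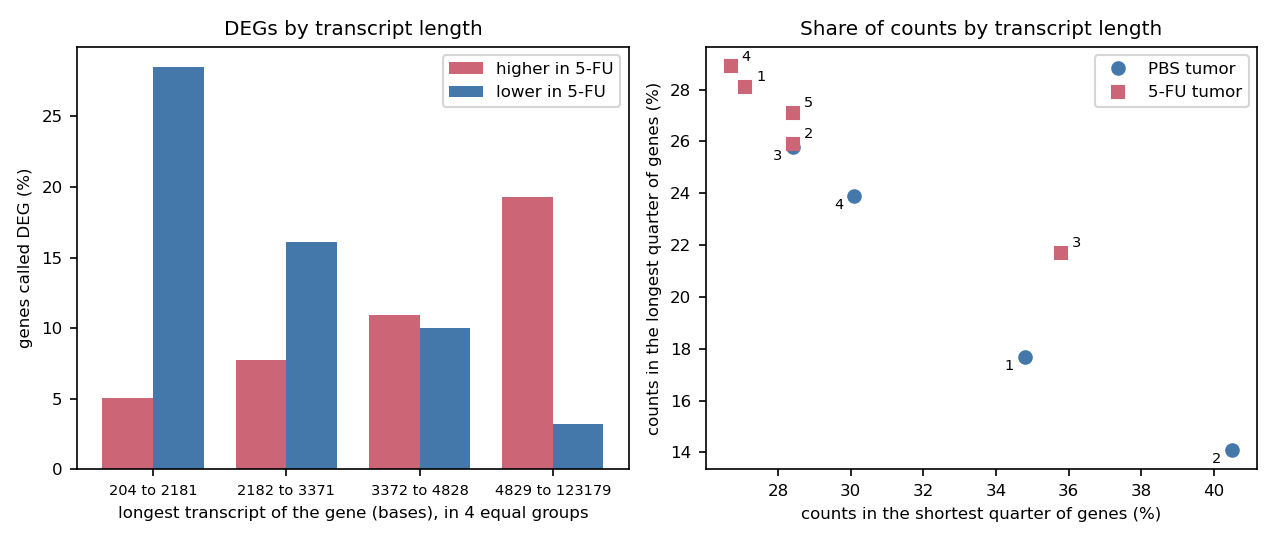
Left, percentage of protein-coding genes called higher or lower in 5-FU tumors in 4 equal groups of transcript length, where the share called lower goes from 28.5% in the shortest to 3.22% in the longest. Right, percentage of counts in the shortest (x axis) and longest (y axis) quartile of genes in each tumor, with replicate numbers. PBS replicates 1 and 2 and 5-FU replicate 3 have the most counts in short genes.

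The target of the drug was lower, and so was part of the genes of its metabolism. Tyms, thymidylate synthase, was measured at 91.9, 134, 65.2 and 66.6 CPM in the PBS tumors and 54.7, 66.9, 47.9, 54.4 and 44.7 CPM in the 5-FU tumors. All 5-FU tumors were below all PBS tumors, except that 5-FU replicate 2 lay just above PBS replicates 3 and 4, and the difference passed the test (log2 fold change -0.74 ± 0.24 (SE), adjusted p = 0.0344). Of 28 members tested, 8 fell and none rose, against 13% and 9.98% of all genes, with a median log2 fold change of -0.35. Tk1, the cytosolic thymidine kinase that salvages thymidine and is made in S phase, was at 191, 312, 139.6 and 140.1 CPM in the PBS tumors and 103, 114, 70.5, 95.7 and 70.9 CPM in the 5-FU tumors (log2 fold change -1.11 ± 0.30 (SE), adjusted p = 0.0159). Dut, which removes dUTP, ranged over 86.6 to 154 CPM in PBS and 47 to 84 CPM in 5-FU (-0.89 ± 0.26, adjusted p = 0.02), and Rrm1, the large subunit of ribonucleotide reductase, over 309 to 372 CPM in PBS and 173 to 269 CPM in 5-FU (-0.69 ± 0.23, adjusted p = 0.0342). Uckl1 and Uck1, uridine-cytidine kinases, ranged over 22.3 to 39.9 CPM in PBS and 12.6 to 20.8 CPM in 5-FU (-0.77 ± 0.18, adjusted p = 0.00828) and 34.3 to 60.9 CPM in PBS and 23.9 to 33.4 CPM in 5-FU (-0.60 ± 0.16, adjusted p = 0.0134).

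Of the enzymes that break down or activate 5-FU, Dpyd, Umps and Upp1 did not pass. Dpyd, which degrades 5-FU, was at 0.287, 0.176, 0.165 and 0.158 CPM in the PBS tumors and 0.725, 0.317, 1.24, 0.468 and 1.94 CPM in the 5-FU tumors (log2 fold change 2.24 ± 0.94 (SE), adjusted p = 0.0834), with all 5-FU tumors above all PBS tumors at levels of few counts. Umps, which joins 5-FU to ribose phosphate, ranged over 61.3 to 82.7 CPM in PBS and 45.3 to 80.6 CPM in 5-FU (-0.28 ± 0.22, adjusted p = 0.329), and Upp1, uridine phosphorylase, over 18 to 75.8 CPM in PBS and 13.3 to 41.4 CPM in 5-FU (-0.70 ± 0.35, adjusted p = 0.142). Rrm2, the small subunit of ribonucleotide reductase, ranged over 190.4 to 239.9 CPM in PBS and 97.8 to 199 CPM in 5-FU (-0.61 ± 0.26, adjusted p = 0.0878). Those called lower among the members numbered 1 without PBS replicate 2, 3 without PBS replicate 1, 4 without 5-FU replicate 5 and 5 without 5-FU replicate 3, and 0 with 5-FU replicates 3 and 5 both left out. The call of Uckl1 held in all 9 fits that left out 1 tumor, while that of Tyms was lost without PBS replicate 1 or 2 or 5-FU replicate 1, 3, 4 or 5 (adjusted p 0.0542 to 0.178), that of Tk1 was lost without PBS replicate 2 (adjusted p = 0.09), that of Dut was lost without PBS replicate 1 or 2 or 5-FU replicate 5 (adjusted p 0.0545 to 0.0955), that of Rrm1 was lost without PBS replicate 1 or 2 or 5-FU replicate 1, 3, 4 or 5 (adjusted p 0.0501 to 0.0967) and that of Uck1 was lost without PBS replicate 2 (adjusted p = 0.0669), and the length correction ended those of Dut (log2 fold change -0.69, adjusted p = 0.0522) and Uck1 (log2 fold change -0.41, adjusted p = 0.0376).

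Genes of DNA replication and mitosis were partly lower. Of 31 replication genes, 11 fell and none rose (median log2 fold change -0.49), and of 28 mitosis genes, 9 fell and none rose (median -0.56), against 13% of all genes lower and 9.98% higher. Rpa3, the smallest subunit of the single-strand binding protein RPA, was measured at 44.9, 77.6, 24.8 and 27.1 CPM in the PBS tumors and 18.1, 21, 13.5, 14.5 and 14.6 CPM in the 5-FU tumors (log2 fold change -1.42 ± 0.27 (SE), adjusted p = 0.00424). Pcna, the sliding clamp of DNA polymerase, was at 380, 484, 294 and 275 CPM in the PBS tumors and 234, 292, 186, 208 and 197 CPM in the 5-FU tumors (log2 fold change -0.68 ± 0.20 (SE), adjusted p = 0.0201). Cdk1, the kinase that drives entry into mitosis, was at 269.8, 345, 165 and 176 CPM in the PBS tumors and 125, 154, 85.2, 114 and 98.9 CPM in the 5-FU tumors (log2 fold change -1.05 ± 0.30 (SE), adjusted p = 0.0195). Cenpa, the histone of centromeres, was at 124, 199.8, 69.5 and 82 CPM in the PBS tumors and 55.3, 62.9, 40.2, 59.2 and 48.1 CPM in the 5-FU tumors (log2 fold change -1.16 ± 0.27 (SE), adjusted p = 0.00881). PBS replicate 2 was the highest tumor in these 4 genes, and the groups overlapped only in Pcna, where 5-FU replicate 2 reached the lower PBS tumors.

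Other proliferation genes did not pass the test. Mki67, the Ki-67 antigen, was at 172, 102, 618 and 455 CPM in the PBS tumors and 526, 517, 225, 510.4 and 389.9 CPM in the 5-FU tumors (log2 fold change 0.36 ± 0.49 (SE), adjusted p = 0.594), with PBS replicates 1 and 2 the lowest of all 9 tumors, and Top2a, topoisomerase II alpha, ranged over 480.4 to 613 CPM in PBS and 259 to 527 CPM in 5-FU (-0.42 ± 0.33, adjusted p = 0.348). Mcm2, a subunit of the replicative helicase, ranged over 138 to 173 CPM in PBS and 95.2 to 174 CPM in 5-FU (-0.25 ± 0.23, adjusted p = 0.428). With the correction for transcript length, 9 replication genes and 7 mitosis genes were lower. 5-FU replicates 3 and 5 had the lowest mean level of the mitosis list, and 5-FU replicate 2 lay within the range of the PBS tumors. The number of lower replication genes was 2 without PBS replicate 2, 5 without PBS replicate 1 and 6 without 5-FU replicate 5. Counts of lower mitosis genes were 2 without PBS replicate 2, 4 without PBS replicate 1 and 5 without 5-FU replicate 3 or 5. Both were 0 with 5-FU replicates 3 and 5 both left out. The calls of Rpa3 and Cenpa held in all 9 fits that left out 1 tumor, while that of Pcna was lost without PBS replicate 1 or 2 or 5-FU replicate 5 (adjusted p 0.0524 to 0.098) and that of Cdk1 was lost without PBS replicate 1 or 2 (adjusted p 0.0603 to 0.0939), and the length correction ended that of Pcna (log2 fold change -0.43, adjusted p = 0.0958).

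Targets of p53, the factor that responds to DNA damage, did not rise together on day 7. Of 32 tested, 3 rose and 7 fell, against 9.98% and 13% of all genes, so that the share that rose was near that of all genes, and the median log2 fold change was -0.27. Cdkn1a, the cell cycle inhibitor p21, was measured at 146, 162, 118 and 128 CPM in the PBS tumors and 127, 167, 109, 126 and 132 CPM in the 5-FU tumors (log2 fold change -0.07 ± 0.15 (SE), adjusted p = 0.754), and Mdm2, the ligase that degrades p53, at 74.9, 97.1, 66 and 70.9 CPM in the PBS tumors and 61.6, 80.2, 48.5, 48.2 and 60.6 CPM in the 5-FU tumors (log2 fold change -0.37 ± 0.18 (SE), adjusted p = 0.123). Neither passed the test and both overlapped. Bbc3, which encodes the death protein PUMA, was at 16.6, 15, 15.4 and 18.1 CPM in the PBS tumors and 10.1, 9.1, 7.45, 8.27 and 7.04 CPM in the 5-FU tumors (log2 fold change -0.95 ± 0.18 (SE), adjusted p = 0.00421), and Gadd45a, a stress gene, at 23, 22.6, 17 and 20.6 CPM in the PBS tumors and 8.35, 7.47, 6.38, 6.84 and 8.48 CPM in the 5-FU tumors (log2 fold change -1.47 ± 0.25 (SE), adjusted p = 0.00221). Both fell with no overlap. Bax, a pore-forming death protein, ranged over 111 to 184 CPM in PBS and 68.3 to 106 CPM in 5-FU (-0.72 ± 0.18, adjusted p = 0.0112), and Gdf15, a stress cytokine, over 2.08 to 2.52 CPM in PBS and 0.351 to 1.06 CPM in 5-FU (-1.79 ± 0.50, adjusted p = 0.0176). The 3 that rose were Fas, the death receptor (2.9 to 8.61 CPM in PBS and 6.37 to 19.8 CPM in 5-FU, 1.25 ± 0.38, adjusted p = 0.0234), Pmaip1, which encodes NOXA (1.93 to 2.46 CPM in PBS and 3.28 to 8.82 CPM in 5-FU, 1.39 ± 0.48, adjusted p = 0.0404), and Btg2, an antiproliferative gene that is also an immediate-early gene (13.6 to 22.9 CPM in PBS and 20.8 to 91 CPM in 5-FU, 1.71 ± 0.56, adjusted p = 0.0327). Higher members numbered 0 without PBS replicate 1 or 5-FU replicate 3 or 5 and 1 without PBS replicate 2, 3 or 4, and of lower members 3 without PBS replicate 2 and 4 without PBS replicate 1 or 5-FU replicate 5. The calls of Bbc3, Gadd45a and Gdf15 held in all 9 fits that left out 1 tumor, while that of Bax was lost without PBS replicate 2 (adjusted p = 0.0571), that of Fas was lost without PBS replicate 1, 3 or 4 or 5-FU replicate 3 or 5 (adjusted p 0.0512 to 0.0746), that of Pmaip1 was lost without PBS replicate 1, 2, 3 or 4 or 5-FU replicate 3 or 5 (adjusted p 0.0577 to 0.106) and that of Btg2 was lost without PBS replicate 1, 2, 3 or 4 or 5-FU replicate 2, 3 or 5 (adjusted p 0.0572 to 0.0859), and the length correction ended that of Bax (log2 fold change -0.41, adjusted p = 0.0869).

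In the BCL2 and caspase list 3 of 26 members rose, near the 9.98% of all genes, and 6 fell, against 13%. Bcl2, the survival protein, was at 22.1, 18.4, 26.8 and 27.5 CPM in the PBS tumors and 38.9, 33, 54.8, 28.8 and 40.7 CPM in the 5-FU tumors (log2 fold change 0.72 ± 0.17 (SE), adjusted p = 0.00878), and Cflar, an inhibitor of caspase 8, at 51, 50.6, 84.7 and 72.4 CPM in the PBS tumors and 99.8, 106, 122, 86.4 and 112 CPM in the 5-FU tumors (log2 fold change 0.70 ± 0.16 (SE), adjusted p = 0.00764). All 5-FU tumors were above all PBS tumors in both. Mcl1, another survival protein, did not pass (230.3 to 354 CPM in PBS and 224 to 432 CPM in 5-FU, 0.26 ± 0.24, adjusted p = 0.43). Those called lower among the members numbered 1 without PBS replicate 2, 2 without PBS replicate 1 or 5-FU replicate 4 or 5 and 3 without 5-FU replicate 1. They also numbered 2 in a model of the PBS and 5-FU tumors alone, 2 with the size factors of DESeq2 and 3 with the replicate block. The calls of Bcl2 and Cflar held in all 9 fits that left out 1 tumor, and the length correction ended those of Bcl2 (log2 fold change 0.30, adjusted p = 0.222) and Cflar (log2 fold change 0.35, adjusted p = 0.079).

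Part of the unfolded protein and integrated stress response list was lower. In the integrated stress response, the factor ATF4 induces genes of serine and asparagine synthesis and of feedback control. Of 20 members tested, 7 fell and 1 rose, against 13% and 9.98% of all genes. Atf4 itself was measured at 322, 385, 248 and 242 CPM in the PBS tumors and 163, 231, 126, 160.1 and 174 CPM in the 5-FU tumors (log2 fold change -0.81 ± 0.26 (SE), adjusted p = 0.0305). Trib3, a feedback inhibitor, was at 20, 18.9, 13.1 and 14.5 CPM in the PBS tumors and 3.33, 5.32, 3.95, 3.48 and 1.83 CPM in the 5-FU tumors (log2 fold change -2.21 ± 0.41 (SE), adjusted p = 0.00375). Psat1, an enzyme of serine synthesis, was at 268, 305, 191 and 177 CPM in the PBS tumors and 96.9, 139, 79.5, 93.6 and 84.5 CPM in the 5-FU tumors (log2 fold change -1.25 ± 0.24 (SE), adjusted p = 0.00386). Asns, asparagine synthetase, was at 189.8, 149.5, 141 and 131 CPM in the PBS tumors and 63.6, 100, 42.1, 63.1 and 49.7 CPM in the 5-FU tumors (log2 fold change -1.26 ± 0.37 (SE), adjusted p = 0.022). All 4 separated the groups without overlap. Hspa5, the chaperone BiP of the endoplasmic reticulum (667 to 1161 CPM in PBS and 635 to 881 CPM in 5-FU, -0.17 ± 0.16, adjusted p = 0.432), and Ddit3, which encodes CHOP (12.1 to 16.7 CPM in PBS and 8.41 to 10.8 CPM in 5-FU, -0.56 ± 0.21, adjusted p = 0.0544), did not pass. The member that rose, Atf3, is counted with the immediate-early genes too. The number of lower members was 4 without PBS replicate 2, and 1 with 5-FU replicates 3 and 5 both left out. The calls of Trib3 and Psat1 held in all 9 fits that left out 1 tumor, while that of Atf4 was lost without PBS replicate 1 or 2 or 5-FU replicate 1, 3, 4 or 5 (adjusted p 0.0539 to 0.118) and that of Asns was lost without PBS replicate 1 or 2 or 5-FU replicate 3 or 5 (adjusted p 0.0534 to 0.072), and the length correction ended that of Atf4 (log2 fold change -0.62, adjusted p = 0.0776).

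Of 14 heat shock genes 3 rose and 1 fell, against 9.98% and 13% of all genes, and the number that rose was 1 without PBS replicate 1. Hspa1a, the inducible HSP70, was at 0.698, 0.176, 0.165 and 0.441 CPM in the PBS tumors and 0.618, 8.6, 6.07, 3.19 and 12.1 CPM in the 5-FU tumors (log2 fold change 4.04 ± 0.99 (SE), adjusted p = 0.0104), near the detection level in PBS tumors and lowest in 5-FU replicate 1 among the 5-FU tumors. Hspe1, the mitochondrial chaperonin HSP10, ranged over 81.3 to 174 CPM in PBS and 58.1 to 82.9 CPM in 5-FU (-0.84 ± 0.21, adjusted p = 0.012). Of 30 ribosome biogenesis genes 4 fell and none rose, so that the share that fell was near the 13% of all genes. The one with the smallest p was Exosc5, a subunit of the RNA exosome (29.6 to 67.8 CPM in PBS and 23.3 to 26.7 CPM in 5-FU, -0.78 ± 0.18, adjusted p = 0.00849). The catalytic exosome subunit Exosc10 ranged over 90.8 to 98.4 CPM in PBS and 59.8 to 99.8 CPM in 5-FU (-0.27 ± 0.20, adjusted p = 0.332). Counts of lower ribosome biogenesis genes were 0 without PBS replicate 2, 2 without PBS replicate 1 or 5-FU replicate 5 and 8 without 5-FU replicate 2. The call of Hspa1a held in all 9 fits that left out 1 tumor, while that of Hspe1 was lost without PBS replicate 2 (adjusted p = 0.0642) and that of Exosc5 was lost without PBS replicate 2 (log2 fold change -0.48, under the threshold of 0.5 in size, adjusted p = 0.0318), and the length correction ended that of Hspe1 (log2 fold change -0.49, adjusted p = 0.0421).

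Genes of osteoclasts, the bone-resorbing cells that arise from macrophage precursors, included Oscar, Slc9b2, Acp5 and Ctsk of the 8 decreases named first. Of 20 members tested 10 fell, against 13% of all genes, and none rose, with a median log2 fold change of -1.22. In 11 every 5-FU tumor was below every PBS tumor, against 14.4% of all genes. This list, like the others, was chosen with earlier results of these data known, so these counts are a description and not independent support. Some of these genes are also made by tumor macrophages and multinucleated giant cells. Acp5, the tartrate-resistant acid phosphatase, was measured at 856, 1078, 638 and 535 CPM in the PBS tumors and 67.6, 118, 87.1, 117 and 74.4 CPM in the 5-FU tumors (log2 fold change -3.06 ± 0.43 (SE), adjusted p = 0.000615). Ctsk, cathepsin K, which degrades collagen, was at 974, 1106, 665 and 572 CPM in the PBS tumors and 106, 126, 126, 168 and 138 CPM in the 5-FU tumors (log2 fold change -2.64 ± 0.50 (SE), adjusted p = 0.00398). Atp6v0d2, a subunit of the proton pump, was at 112, 116, 97.6 and 85.5 CPM in the PBS tumors and 12.2, 20.1, 18.7, 20.4 and 13.8 CPM in the 5-FU tumors (log2 fold change -2.59 ± 0.30 (SE), adjusted p = 0.000156). These abundant genes fell 8.37-fold, 6.24-fold and 6.03-fold, and the 5-FU tumors lay close together. Oscar, an osteoclast receptor, was at 2.67, 5.5, 4.05 and 1.92 CPM in the PBS tumors and 0.295, 0.705, 0, 0.409 and 0.144 CPM in the 5-FU tumors (log2 fold change -3.47 ± 0.95 (SE), adjusted p = 0.0157), which is at few counts in the 5-FU tumors. Mmp9, a gelatinase that neutrophils and macrophages also make, was lower in every 5-FU tumor than in every PBS tumor and did not pass (485 to 777 CPM in PBS and 152 to 297 CPM in 5-FU, -1.42 ± 0.56, adjusted p = 0.068). Dcstamp and Ocstamp, needed for cell fusion, ranged over 5.89 to 11.4 CPM in PBS and 3.04 to 8.34 CPM in 5-FU (-0.84 ± 0.30, adjusted p = 0.0456) and 12 to 17.8 CPM in PBS and 0.842 to 5.73 CPM in 5-FU (-2.23 ± 0.70, adjusted p = 0.0282).

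Of 21 general macrophage markers none fell. Cd68, a lysosomal glycoprotein of macrophages, ranged over 176 to 217 CPM in PBS and 115 to 263 CPM in 5-FU (-0.25 ± 0.29, adjusted p = 0.546), and Csf1r, the receptor for M-CSF, over 197 to 332 CPM in PBS and 249 to 733 CPM in 5-FU (0.46 ± 0.39, adjusted p = 0.384). Of 31 lysosome genes 4 rose and 4 fell, which is near the 9.98% and 13% of all genes. The number that rose was 0 without PBS replicate 1 or 2, 1 without 5-FU replicate 3 and 2 without 5-FU replicate 5, and the number that fell 1 without PBS replicate 2 and 2 without PBS replicate 1. The 4 that fell were all subunits of the proton pump, among them Atp6v1b2 (215 to 314 CPM in PBS and 108 to 189 CPM in 5-FU, -0.88 ± 0.21, adjusted p = 0.0102). Not all pump subunits fell, with log2 fold changes of -0.243 for Atp6v0c, -0.469 for Tcirg1 and 0.797 for Atp6v0a1. Lower osteoclast members numbered 6 without PBS replicate 2, and 5 with 5-FU replicates 3 and 5 both left out. The calls of Acp5, Ctsk, Atp6v0d2 and Atp6v1b2 held in all 9 fits that left out 1 tumor, while that of Oscar was lost without PBS replicate 2 (adjusted p = 0.0557), that of Dcstamp was lost without PBS replicate 1, 2 or 3 or 5-FU replicate 1, 2, 4 or 5 (adjusted p 0.0537 to 0.135) and that of Ocstamp was lost without PBS replicate 1 or 2 or 5-FU replicate 1, 3 or 5 (adjusted p 0.0543 to 0.0693), and the length correction ended that of Dcstamp (log2 fold change -0.67, adjusted p = 0.094).

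**Figure D4:**
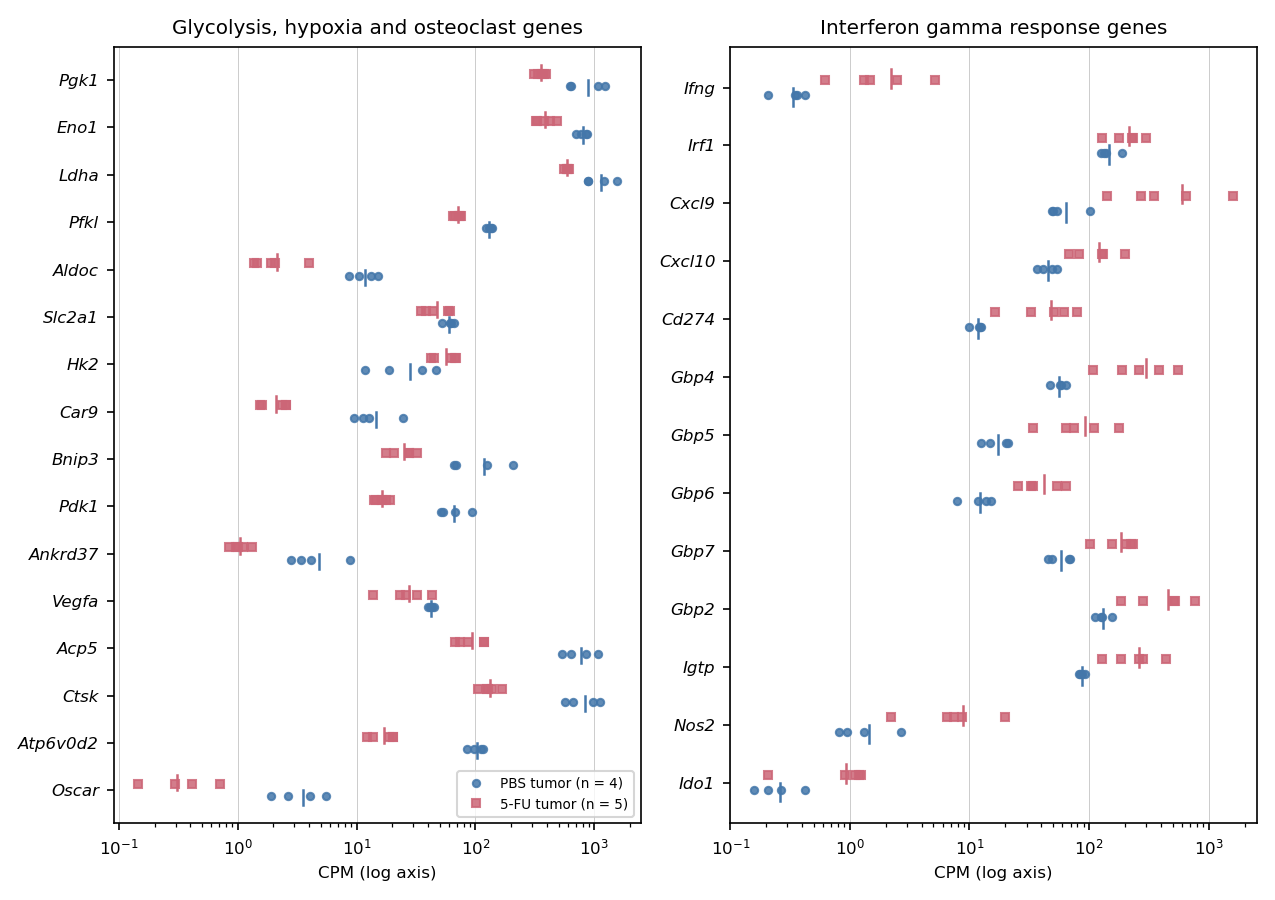
CPM (log axis) in each tumor of glycolysis, hypoxia and osteoclast genes (left) and of interferon gamma response genes (right). Circles are the 4 PBS tumors, squares the 5 5-FU tumors and vertical ticks the group means. Oscar in 5-FU replicate 3, with 0 CPM, is not drawn on the log axis. Acp5 lies at 535 to 1078 CPM in PBS tumors and 67.6 to 118 CPM in 5-FU tumors, while Cxcl9 lies at 49.4 to 102 CPM in PBS and 141 to 1602 CPM in 5-FU tumors.

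Part of the immediate-early genes, which cells transcribe within minutes of a signal or of handling, was higher with a wide spread. Of 29 members tested, 17 rose and none fell, against 9.98% of all genes, and the median log2 fold change was 1.62. Fosb, a partner of JUN in the AP-1 factor, had the largest increase under the rule for named genes, with 6.65, 5.25, 14.6 and 9.77 CPM in the PBS tumors and 21.4, 1237, 583, 414 and 1239 CPM in the 5-FU tumors (log2 fold change 6.27 ± 1.33 (SE), adjusted p = 0.00608). 5-FU replicate 1 was just above PBS, and the other 4 were far above it. Fos was at 32.2, 24, 40.4 and 38.5 CPM in the PBS tumors and 29.1, 299, 81.7, 66.5 and 251 CPM in the 5-FU tumors (log2 fold change 2.10 ± 0.61 (SE), adjusted p = 0.0198), and Egr1, a zinc finger factor, at 94.7, 60.8, 162 and 136 CPM in the PBS tumors and 86.5, 718, 228, 233 and 544 CPM in the 5-FU tumors (log2 fold change 1.68 ± 0.53 (SE), adjusted p = 0.0296). 5-FU replicate 1 lay within the PBS range in both. Nr4a1, an orphan nuclear receptor, was at 12.2, 10.1, 16.9 and 14.2 CPM in the PBS tumors and 16.4, 221, 91.7, 74.2 and 229 CPM in the 5-FU tumors (log2 fold change 3.24 ± 0.64 (SE), adjusted p = 0.00462), and Zfp36, which destabilizes cytokine mRNA, at 22.7, 21.3, 30.1 and 31.2 CPM in the PBS tumors and 35.4, 195, 118, 57.8 and 214 CPM in the 5-FU tumors (log2 fold change 2.23 ± 0.47 (SE), adjusted p = 0.00585). Jun did not pass the test (122 to 172 CPM in PBS and 128 to 342 CPM in 5-FU, 0.72 ± 0.27, adjusted p = 0.0545). In the 5 genes given by tumor, 5-FU replicates 2 and 5 were high, 3 and 4 lay between and 1 was low. Those called higher among the members numbered 10 without PBS replicate 1 or 2 or 5-FU replicate 5, and 4 with 5-FU replicates 3 and 5 both left out. The calls of Fosb, Nr4a1 and Zfp36 held in all 9 fits that left out 1 tumor, while that of Fos was lost without PBS replicate 1 or 2 or 5-FU replicate 5 (adjusted p 0.053 to 0.0756) and that of Egr1 was lost without PBS replicate 1 or 2 or 5-FU replicate 2 or 5 (adjusted p 0.0715 to 0.107).

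Part of the genes of the NF-kB, TNF and IL-6 pathways was higher. Of 28 members tested, 16 rose, against 9.98% of all genes, none fell, all 28 had a positive log2 fold change (median 1.00), and in 16 the groups did not overlap, against 10.4% of all genes. Tnf, the cytokine, was measured at 1.89, 3.63, 1.48 and 1.67 CPM in the PBS tumors and 4.97, 12.1, 15.7, 4.85 and 20.8 CPM in the 5-FU tumors (log2 fold change 2.43 ± 0.51 (SE), adjusted p = 0.00574). Tnfaip3, the NF-kB inhibitor A20, was at 21.4, 18.5, 21.6 and 22.5 CPM in the PBS tumors and 29.5, 96.6, 89.8, 43.5 and 125 CPM in the 5-FU tumors (log2 fold change 1.87 ± 0.40 (SE), adjusted p = 0.00633). Nfkbiz, an atypical I-kappa-B, was at 10.2, 11.4, 10.2 and 12.7 CPM in the PBS tumors and 19.8, 95.4, 54.3, 33.4 and 114 CPM in the 5-FU tumors (log2 fold change 2.51 ± 0.52 (SE), adjusted p = 0.00543). Each was highest in 5-FU replicate 5 and lowest in 5-FU replicate 1 or 4, and no value overlapped with PBS. Ccl7, a monocyte chemokine, was at 27.3, 46.7, 15.1 and 18.5 CPM in the PBS tumors and 47.2, 108, 158, 57 and 164 CPM in the 5-FU tumors (log2 fold change 1.99 ± 0.42 (SE), adjusted p = 0.006), and Vcam1, an adhesion molecule of activated endothelium, ranged over 84.3 to 100 CPM in PBS and 150 to 628 CPM in 5-FU (1.67 ± 0.35, adjusted p = 0.00608). Il6 was at 0.452, 0.952, 0.264 and 0.788 CPM in the PBS tumors and 0.698, 4.97, 1.24, 1.05 and 8.26 CPM in the 5-FU tumors (log2 fold change 2.39 ± 0.81 (SE), adjusted p = 0.039), at a low level throughout. Nfkbia, which encodes I-kappa-B alpha, did not pass (87.9 to 93.4 CPM in PBS and 81.1 to 207 CPM in 5-FU, 0.71 ± 0.27, adjusted p = 0.0625). It passed in 5 of 18 alternative fits, that with the length correction among them (log2 fold change 0.91, adjusted p = 0.0244). The number of higher members was 12 to 18 in the 9 fits that left out 1 tumor and 1 with 5-FU replicates 3 and 5 both left out. The calls of Tnf, Tnfaip3, Nfkbiz, Ccl7 and Vcam1 held in all 9 fits that left out 1 tumor, while that of Il6 was lost without PBS replicate 1, 2, 3 or 4 or 5-FU replicate 2 or 5 (adjusted p 0.0581 to 0.128).

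In the IL-1 family 5 of 19 members rose, against 9.98% of all genes, and none fell, although 2 were called lower without PBS replicate 3 or 4. Il1rn, the natural antagonist of the IL-1 receptor, was at 14.2, 21.4, 14.9 and 12.1 CPM in the PBS tumors and 31.9, 109, 93.1, 33.6 and 99.9 CPM in the 5-FU tumors (log2 fold change 2.23 ± 0.47 (SE), adjusted p = 0.00577), and Il18bp, the protein that binds and neutralizes IL-18, at 8.87, 10.5, 7.02 and 9.29 CPM in the PBS tumors and 26.5, 35.4, 154, 17.3 and 59.4 CPM in the 5-FU tumors (log2 fold change 2.71 ± 0.60 (SE), adjusted p = 0.00732). Il33, an alarmin of stromal cells, was at 18.8, 44.1, 21.5 and 18.2 CPM in the PBS tumors and 73.4, 60.4, 119.5, 55.2 and 124 CPM in the 5-FU tumors (log2 fold change 1.75 ± 0.34 (SE), adjusted p = 0.00445). No overlap occurred in these 3 genes. The agonist Il1a ranged over 0.329 to 0.811 CPM in PBS and 0.789 to 6.42 CPM in 5-FU (2.76 ± 0.73, adjusted p = 0.0141). Il1b was at 15.4, 51.1, 11.3 and 13 CPM in the PBS tumors and 25.9, 99.2, 103, 26.9 and 113 CPM in the 5-FU tumors (log2 fold change 1.70 ± 0.62 (SE), adjusted p = 0.0531) and did not pass, with PBS replicate 2 within the 5-FU range, and its receptor Il1r1 did not pass either (66.7 to 102 CPM in PBS and 82.7 to 100 CPM in 5-FU, 0.09 ± 0.15, adjusted p = 0.699). Counts of higher members were 3 without PBS replicate 1. The calls of Il1rn, Il18bp and Il33 held in all 9 fits that left out 1 tumor, while that of Il1a was lost without PBS replicate 1 (adjusted p = 0.052). Il1b passed in 7 of 18 alternative fits, that with the length correction among them (log2 fold change 2.045, adjusted p = 0.0229).

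The interferon gamma response had the largest share of members called higher among the 39 lists. Interferon gamma is a cytokine of T cells and NK cells that induces guanylate-binding proteins, immunity-related GTPases and T cell chemokines. Of 26 members tested, 21 rose and none fell, against 9.98% of all genes, with a median log2 fold change of 1.64, and in 19 the groups did not overlap, against 10.4%. Ifng itself was measured at 0.205, 0.423, 0.362 and 0.347 CPM in the PBS tumors and 1.32, 1.48, 5.19, 0.614 and 2.48 CPM in the 5-FU tumors (log2 fold change 2.69 ± 0.52 (SE), adjusted p = 0.00421), which is a low level in every tumor. Cxcl9 and Cxcl10, chemokines that draw T cells, were at 49.4, 102, 53.8 and 49.6 CPM in the PBS tumors and 270.2, 353, 1602, 141 and 645 CPM in the 5-FU tumors (log2 fold change 3.24 ± 0.58 (SE), adjusted p = 0.00296) and at 49, 36.9, 41.2 and 53.6 CPM in the PBS tumors and 81.8, 129, 202, 67.5 and 131 CPM in the 5-FU tumors (log2 fold change 1.44 ± 0.26 (SE), adjusted p = 0.00296). 5-FU replicate 4 was the lowest 5-FU tumor and replicate 3 the highest in Cxcl9.

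Of the effector genes, Gbp4, a guanylate-binding protein, was at 46.9, 63.8, 58.3 and 57.2 CPM in the PBS tumors and 189.5, 260.2, 551, 107 and 386 CPM in the 5-FU tumors (log2 fold change 2.40 ± 0.34 (SE), adjusted p = 0.000672), and Gbp5, another, at 14.9, 12.5, 20.3 and 21.2 CPM in the PBS tumors and 64.5, 74.9, 179.5, 34.1 and 109.8 CPM in the 5-FU tumors (log2 fold change 2.42 ± 0.35 (SE), adjusted p = 0.000723). Igtp, an immunity-related GTPase, was at 82.8, 88.2, 83.8 and 91.8 CPM in the PBS tumors and 185, 264, 442, 129 and 282 CPM in the 5-FU tumors (log2 fold change 1.59 ± 0.25 (SE), adjusted p = 0.00171). Every 5-FU tumor was above every PBS tumor in all 3. Cd274, which encodes the checkpoint ligand PD-L1, was at 9.94, 12.4, 12.3 and 12.1 CPM in the PBS tumors and 32.8, 51.4, 79.6, 16.5 and 61.7 CPM in the 5-FU tumors (log2 fold change 2.05 ± 0.32 (SE), adjusted p = 0.00161), a 4.14-fold increase. Nos2, the inducible nitric oxide synthase, was at 0.945, 0.811, 2.67 and 1.32 CPM in the PBS tumors and 6.45, 7.41, 19.6, 2.19 and 8.69 CPM in the 5-FU tumors (log2 fold change 2.61 ± 0.61 (SE), adjusted p = 0.00895), with 5-FU replicate 4 within the PBS range. Irf1 (125 to 190.5 CPM in PBS and 128 to 302 CPM in 5-FU, 0.54 ± 0.23, adjusted p = 0.0894) did not pass. It passed in 3 of 18 alternative fits, that with the length correction among them (log2 fold change 0.69, adjusted p = 0.0304). Genes of the Gbp and Tgtp families have near-identical copies, so that counts could be split between them. Higher members numbered 19 to 22 in the 9 fits that left out 1 tumor, 17 with 5-FU replicates 3 and 5 both left out and 23 with the length correction. The calls of Ifng, Cxcl9, Cxcl10, Gbp4, Gbp5, Igtp, Cd274 and Nos2 held in all 9 fits that left out 1 tumor.

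Genes of the type I interferon response, which overlaps with that to interferon gamma, rose in part. Of 28 members tested 10 rose, against 9.98% of all genes, and none fell, with a median log2 fold change of 0.39. Zbp1, a sensor of Z-form nucleic acid, was at 74.3, 73.5, 59.1 and 77.6 CPM in the PBS tumors and 123, 155, 172, 87.5 and 155 CPM in the 5-FU tumors (log2 fold change 0.96 ± 0.17 (SE), adjusted p = 0.00302), and Ifih1, which encodes the RNA sensor MDA5, at 31.9, 20.7, 24 and 30.4 CPM in the PBS tumors and 45.2, 56.7, 51.9, 35.8 and 49.9 CPM in the 5-FU tumors (log2 fold change 0.84 ± 0.20 (SE), adjusted p = 0.0099). Among those that did not pass were 4 further members. Isg15, a ubiquitin-like modifier, ranged over 29.4 to 44.7 CPM in PBS and 38.6 to 57.3 CPM in 5-FU (0.31 ± 0.26, adjusted p = 0.375), Ifit1 over 38 to 59.3 CPM in PBS and 50.5 to 72.4 CPM in 5-FU (0.32 ± 0.25, adjusted p = 0.35) and Mx1 over 8.34 to 14.2 CPM in PBS and 8.78 to 20.1 CPM in 5-FU (0.20 ± 0.35, adjusted p = 0.687). Irf7, which amplifies type I interferon, ranged over 111 to 206 CPM in PBS and 157 to 180.2 CPM in 5-FU (0.07 ± 0.26, adjusted p = 0.849). Those called higher among the members numbered 2 without PBS replicate 2, 3 without PBS replicate 1 or 5-FU replicate 1, 4 without 5-FU replicate 2 or 5, 5 without PBS replicate 3 or 5-FU replicate 3 and 6 without 5-FU replicate 4, and 5 with the length correction. They also numbered 4 with the replicate block and 6 without the filter on low counts. The calls of Zbp1 and Ifih1 held in all 9 fits that left out 1 tumor, and the length correction ended that of Ifih1 (log2 fold change 0.58, adjusted p = 0.0598).

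The interferon-stimulated response element, searched on both strands as TTTC, any 2 bases and TTTC, was found in the promoters of 11 of 19 interferon gamma members and 10 of 21 type I members with an entry, and in 3.41% of all tested genes with one. Stretches of 6 members are shown to set the element of members that passed the test beside that of 1 that did not. Cxcl10, Gbp2, Gbp5 and Igtp rose and Isg15 did not pass. Rsad2 passed, but its call was lost in 8 of the 9 fits that left out 1 tumor (adjusted p 0.0523 to 0.154) and with the length correction (adjusted p = 0.0597). Each is on the gene's strand of GRCm38.p6, with matches on either strand in capitals.
Cxcl10, chr5:92349068-92349127, minus strand: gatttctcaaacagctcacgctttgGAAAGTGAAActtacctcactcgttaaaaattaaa
Gbp2, chr3:142620579-142620638, plus strand: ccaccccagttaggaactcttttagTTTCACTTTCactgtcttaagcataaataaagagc
Gbp5, chr3:142496744-142496803, plus strand: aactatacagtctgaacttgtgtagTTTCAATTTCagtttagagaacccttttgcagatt
Igtp, chr11:58199497-58199555, plus strand: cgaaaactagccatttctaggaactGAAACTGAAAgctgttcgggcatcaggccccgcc
Rsad2, chr12:26456538-26456597, minus strand: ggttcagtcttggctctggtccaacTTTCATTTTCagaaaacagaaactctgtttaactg
Isg15, chr4:156200850-156200921, minus strand: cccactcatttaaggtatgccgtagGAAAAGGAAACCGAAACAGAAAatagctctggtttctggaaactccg

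In the list of nucleic acid sensors 6 of 16 members rose, against 9.98% of all genes, and 1 fell, a share below the 13% of all genes. Tlr9, the endosomal DNA sensor, was at 3.12, 1.41, 5.86 and 5.8 CPM in the PBS tumors and 11.9, 13.1, 47.3, 10.6 and 24.8 CPM in the 5-FU tumors (log2 fold change 2.40 ± 0.62 (SE), adjusted p = 0.0123), and Samhd1, which degrades deoxynucleotides, at 183, 119.6, 257 and 249 CPM in the PBS tumors and 347, 432, 566, 296 and 449 CPM in the 5-FU tumors (log2 fold change 1.05 ± 0.21 (SE), adjusted p = 0.00531). Both separated the groups without overlap. Irf3, which is activated by the cytosolic sensors, ranged over 40 to 55.3 CPM in PBS and 29.7 to 34.4 CPM in 5-FU (-0.59 ± 0.12, adjusted p = 0.00449), and Cgas, the cytosolic DNA sensor, did not pass (20 to 28.8 CPM in PBS and 14.5 to 23.7 CPM in 5-FU, -0.31 ± 0.25, adjusted p = 0.36). The number of higher members was 2 without PBS replicate 2. The calls of Samhd1 and Irf3 held in all 9 fits that left out 1 tumor, while that of Tlr9 was lost without PBS replicate 2 (adjusted p = 0.0511), and the length correction ended that of Irf3 (log2 fold change -0.42, adjusted p = 0.00703).

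Of 16 members of MHC class I antigen presentation 5 rose and none fell, against 9.98% and 13% of all genes. Tap1 and Tap2, the peptide transporter, were at 166, 160.3, 143 and 172 CPM in the PBS tumors and 211, 282, 462, 173 and 301 CPM in the 5-FU tumors (log2 fold change 0.83 ± 0.21 (SE), adjusted p = 0.0116) and at 104, 70.5, 123 and 140.4 CPM in the PBS tumors and 176, 241, 302, 154 and 237 CPM in the 5-FU tumors (log2 fold change 1.02 ± 0.20 (SE), adjusted p = 0.00464). Both had all 5-FU tumors above PBS. The heavy chain H2-K1 (634 to 799 CPM in PBS and 578 to 1903 CPM in 5-FU, 0.45 ± 0.32, adjusted p = 0.304) and B2m, the light chain (1259 to 1935 CPM in PBS and 1144 to 3582 CPM in 5-FU, 0.27 ± 0.33, adjusted p = 0.555), did not pass, with 5-FU replicate 3 far above the other tumors. Of 13 MHC class II members 6 rose, against the same 9.98%, and none fell, with a median log2 fold change of 1.62. Cd74, the invariant chain, was at 336, 805, 639 and 391 CPM in the PBS tumors and 1688, 1928, 10490, 916 and 3740 CPM in the 5-FU tumors (log2 fold change 2.79 ± 0.76 (SE), adjusted p = 0.0155), and H2-Ab1, a class II chain, at 128, 431, 200.1 and 149.6 CPM in the PBS tumors and 472, 502, 3622, 282 and 1113 CPM in the 5-FU tumors (log2 fold change 2.40 ± 0.80 (SE), adjusted p = 0.0362). 5-FU replicates 3 and 5 stood above all others, while 5-FU replicate 4 lay near PBS replicate 2. Counts of higher class I members were 0 with 5-FU replicates 3 and 5 both left out, and of class II members it was 0 without PBS replicate 1, 1 without 5-FU replicate 3, 2 without 5-FU replicate 5 and 3 without PBS replicate 2, 3 or 4, and also 0 with both left out. The calls of Tap1 and Tap2 held in all 9 fits that left out 1 tumor, while that of Cd74 was lost without PBS replicate 1 (adjusted p = 0.0568) and that of H2-Ab1 was lost without PBS replicate 1, 2, 3 or 4 or 5-FU replicate 3 or 5 (adjusted p 0.0553 to 0.149).

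**Figure D5:**
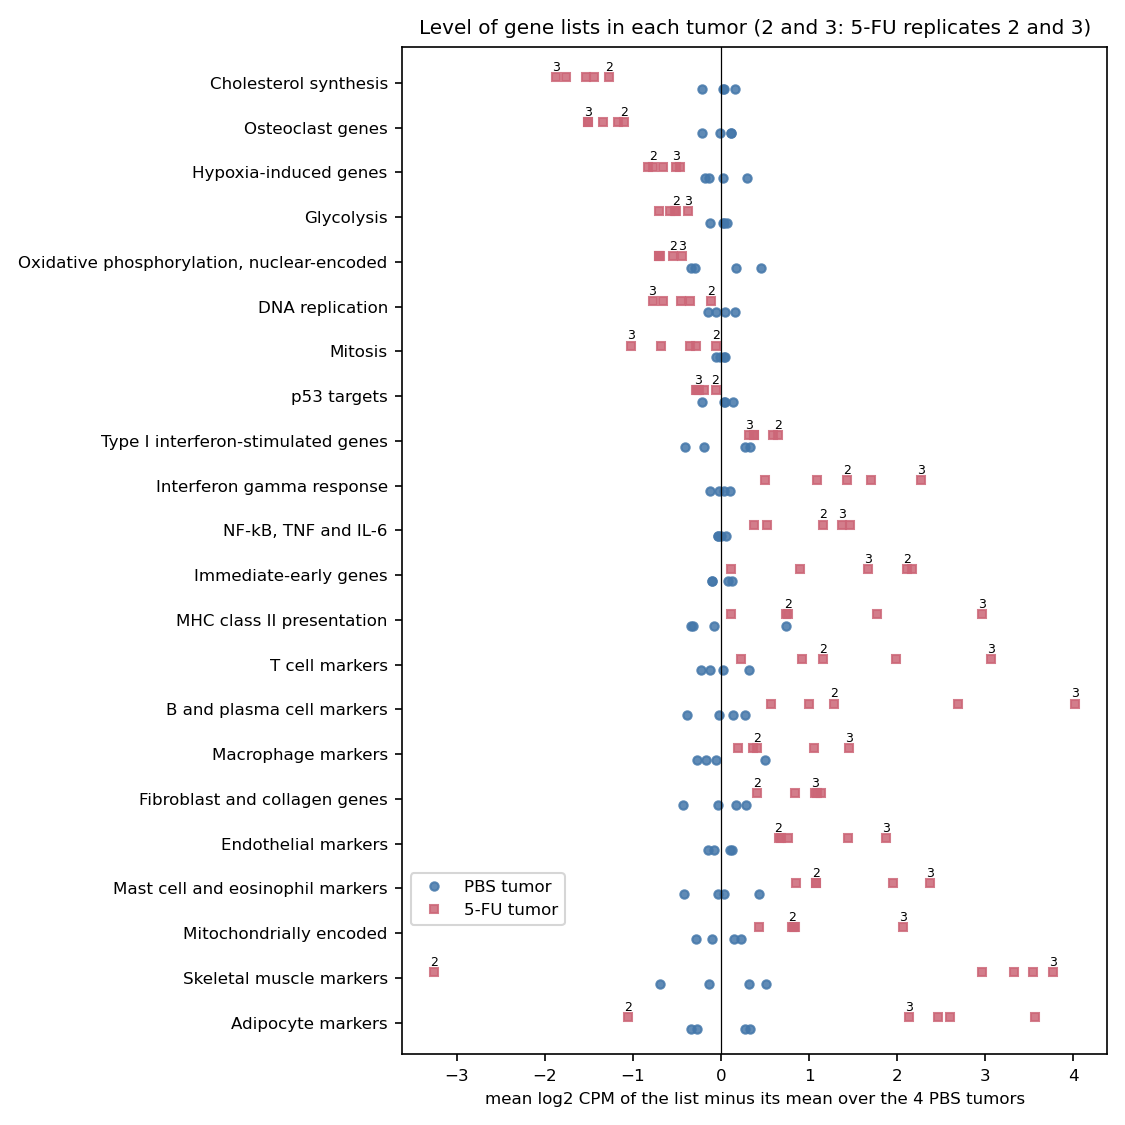
Mean log2 CPM of 22 gene lists in each tumor, given as the difference from the mean of the 4 PBS tumors (x axis). Circles are PBS tumors, squares 5-FU tumors, and the digits mark 5-FU replicates 2 and 3. Cholesterol synthesis, osteoclast, hypoxia and glycolysis lists put all 5-FU tumors below all PBS tumors, whereas the lymphocyte lists spread from near PBS in replicate 4 to far above in replicate 3.

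Part of the T cell markers was higher, with a strong spread among the 5-FU tumors. Of 23 T cell markers tested 11 rose, against 9.98% of all genes, none fell, all 23 had a positive log2 fold change (median 1.84), and the summed level was 117 to 190 CPM in PBS tumors and 155 to 1124 CPM in 5-FU tumors. Cd3g, a chain of the T cell receptor complex, was at 3.25, 5.25, 4.48 and 4.41 CPM in the PBS tumors and 9.03, 16, 82, 5.5 and 25.3 CPM in the 5-FU tumors (log2 fold change 2.66 ± 0.83 (SE), adjusted p = 0.0278), and Cd4, the coreceptor of helper cells, at 7.31, 5.89, 5.21 and 8.82 CPM in the PBS tumors and 20.8, 12.4, 105, 10.8 and 37.6 CPM in the 5-FU tumors (log2 fold change 2.45 ± 0.77 (SE), adjusted p = 0.0277). Cd8a, the coreceptor of cytotoxic cells, was at 4.03, 5.54, 5.24 and 5.58 CPM in the PBS tumors and 9.46, 20.6, 76.3, 5.17 and 26.2 CPM in the 5-FU tumors (log2 fold change 2.43 ± 0.77 (SE), adjusted p = 0.0288). 5-FU replicate 3 was highest in each and replicate 4 at the edge of the PBS range. Of 19 checkpoint and regulatory T cell genes 10 rose, against the same 9.98%, and none fell. Foxp3, the factor of regulatory T cells, was at 2.3, 1.52, 4.55 and 4.85 CPM in the PBS tumors and 11.6, 7.09, 24.2, 7.69 and 18.8 CPM in the 5-FU tumors (log2 fold change 2.06 ± 0.48 (SE), adjusted p = 0.00847), with all 5-FU tumors above PBS. Ctla4 was at 2.38, 7.55, 2.6 and 2.21 CPM in the PBS tumors and 7.44, 10.8, 17.8, 5.26 and 17.9 CPM in the 5-FU tumors (log2 fold change 1.68 ± 0.57 (SE), adjusted p = 0.0393), and Pdcd1, which encodes PD-1, did not pass (2.96 to 9.38 CPM in PBS and 3.51 to 62.7 CPM in 5-FU, 2.31 ± 0.87, adjusted p = 0.0579), PBS replicate 2 being the highest PBS tumor in both. Higher T cell markers numbered 0 without PBS replicate 1 or 2, 1 without 5-FU replicate 3, 5 without 5-FU replicate 5, 6 without PBS replicate 4 and 7 without PBS replicate 3, and 4 with a replicate block. Those called higher among the checkpoint genes numbered 5 without PBS replicate 1 and 6 without 5-FU replicate 3. Both numbers were 0 with 5-FU replicates 3 and 5 both left out. Pdcd1 passed in 5 of 18 alternative fits, that with the length correction among them (log2 fold change 2.51, adjusted p = 0.04465). The call of Foxp3 held in all 9 fits that left out 1 tumor, while that of Cd3g was lost without PBS replicate 1, 2 or 4 or 5-FU replicate 3 (adjusted p 0.0516 to 0.102), that of Cd4 was lost without PBS replicate 1, 2 or 3 or 5-FU replicate 3 or 5 (adjusted p 0.0501 to 0.0984), that of Cd8a was lost without PBS replicate 1, 2 or 4 or 5-FU replicate 3 or 5 (adjusted p 0.0501 to 0.101) and that of Ctla4 was lost without PBS replicate 1, 3 or 4 or 5-FU replicate 3 or 5 (adjusted p 0.081 to 0.116).

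Of 20 genes of cytotoxic and NK cells 6 rose, against 9.98% of all genes, and 3 fell, near the 13% of all genes. Prf1, perforin, was at 11.3, 11.9, 7.35 and 10.6 CPM in the PBS tumors and 15.5, 23.1, 56.5, 10.1 and 24.7 CPM in the 5-FU tumors (log2 fold change 1.33 ± 0.41 (SE), adjusted p = 0.0251), and Gzma, granzyme A, ranged over 7.94 to 23.7 CPM in PBS and 15.1 to 70 CPM in 5-FU (1.25 ± 0.44, adjusted p = 0.045). Gzmb, granzyme B (8.83 to 25.2 CPM in PBS and 15 to 34 CPM in 5-FU, 0.54 ± 0.27, adjusted p = 0.138), and Ncr1, an NK cell receptor (5.57 to 16.8 CPM in PBS and 8.54 to 33.4 CPM in 5-FU, 0.75 ± 0.41, adjusted p = 0.171), did not pass. Of 18 alternative fits, Gzmb passed only in that with the length correction (log2 fold change 0.81, adjusted p = 0.0187). The 3 that fell were Gzmg, Gzmd and Gzme, granzymes of close sequence among which counts could be split. Gzmg was at 0.411, 13.1, 2.96 and 0.347 CPM in the PBS tumors and 0.322, 0.106, 0.133, 0.38 and 0 CPM in the 5-FU tumors (log2 fold change -4.37 ± 1.22 (SE), adjusted p = 0.0174) and Gzmd at 1.77, 21.1, 4.74 and 1.45 CPM in the PBS tumors and 0.806, 1.8, 1.6, 0.935 and 0.79 CPM in the 5-FU tumors (log2 fold change -2.63 ± 0.79 (SE), adjusted p = 0.0236). In 3 of the 5 5-FU tumors Gzmg was at or under 3 counts, so that the size of its fitted change depends on the prior count. PBS replicates 2 and 3 held the high values, and PBS replicates 1 and 4 were within or near the 5-FU range. The number of higher cytotoxic genes was 0 without PBS replicate 1, 1 without PBS replicate 2 or 5-FU replicate 3, 2 without PBS replicate 3 and 3 without PBS replicate 4 or 5-FU replicate 5, and of lower ones 0 without PBS replicate 2 and 1 without 5-FU replicate 5. With the replicate block each of the 2 numbers was 1. Both were 0 with 5-FU replicates 3 and 5 both left out. In fits that left out 1 tumor at a time, the call of Prf1 was lost without PBS replicate 1, 2 or 3 or 5-FU replicate 3 (adjusted p 0.0555 to 0.0812), that of Gzma was lost without PBS replicate 1, 2, 3 or 4 or 5-FU replicate 3 or 5 (adjusted p 0.0502 to 0.145), that of Gzmg was lost without PBS replicate 2 (adjusted p = 0.15) and that of Gzmd was lost without PBS replicate 2 or 5-FU replicate 5 (adjusted p 0.0585 to 0.259).

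Of 14 markers of B cells and plasma cells 2 rose, near the 9.98% of all genes, although all 14 had a positive log2 fold change and the median was 2.36. Cd22, a B cell inhibitory receptor, was at 4.89, 6.56, 3.49 and 5.39 CPM in the PBS tumors and 13, 11.2, 64.1, 9.12 and 25 CPM in the 5-FU tumors (log2 fold change 2.27 ± 0.74 (SE), adjusted p = 0.0328). Ms4a1, which encodes CD20, was at 0.534, 0.635, 0.264 and 0.252 CPM in the PBS tumors and 1.72, 2.08, 25, 1.2 and 9.02 CPM in the 5-FU tumors (log2 fold change 4.20 ± 1.61 (SE), adjusted p = 0.0619). All 5-FU tumors were above all PBS tumors, but Ms4a1 did not pass and was at few counts in PBS tumors. Counts of higher B cell markers were 0 without PBS replicate 1, 2, 3 or 4 or 5-FU replicate 3 or 5, but 7 in a model of the PBS and 5-FU tumors alone and 8 with 5-FU+ICB replicate 5 left out of the 4-group model, a choice made after the values were seen, as that tumor had the highest mitochondrially encoded share (16.1% of counts). In fits that left out 1 tumor at a time, the call of Cd22 was lost without PBS replicate 1, 2, 3 or 4 or 5-FU replicate 3 or 5 (adjusted p 0.0574 to 0.111).

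Myeloid markers moved in part. Of 21 macrophage markers 7 rose, against 9.98% of all genes, and none fell. Mrc1, the mannose receptor, was at 98.2, 138, 90.2 and 95.4 CPM in the PBS tumors and 224, 191, 463, 205 and 382 CPM in the 5-FU tumors (log2 fold change 1.48 ± 0.35 (SE), adjusted p = 0.00935), and Cd163, a scavenger receptor, at 3.9, 6.38, 5.53 and 6.84 CPM in the PBS tumors and 26.2, 16.1, 27.9, 22.9 and 91.2 CPM in the 5-FU tumors (log2 fold change 2.70 ± 0.65 (SE), adjusted p = 0.0095). Adgre1, the F4/80 antigen, was at 87.6, 92, 53.1 and 65.8 CPM in the PBS tumors and 136, 181, 524, 139 and 277 CPM in the 5-FU tumors (log2 fold change 1.75 ± 0.51 (SE), adjusted p = 0.02). All 5-FU tumors were above PBS in these 3, with replicates 3 and 5 the highest. Of 18 dendritic cell markers 4 rose, against the same 9.98%, and none fell. Itgax, CD11c, was at 10.8, 10.8, 13.9 and 13 CPM in the PBS tumors and 41.1, 31.1, 255, 20.9 and 80.5 CPM in the 5-FU tumors (log2 fold change 2.82 ± 0.79 (SE), adjusted p = 0.0171), whereas Clec9a (1.13 to 1.55 CPM in PBS and 0.731 to 4.17 CPM in 5-FU, 0.71 ± 0.47, adjusted p = 0.258) and Xcr1 (2.21 to 3.59 CPM in PBS and 1.93 to 11.9 CPM in 5-FU, 0.82 ± 0.59, adjusted p = 0.304), markers of cross-presenting cells, did not pass. Higher macrophage markers numbered 2 without PBS replicate 1, 3 without PBS replicate 2 or 5-FU replicate 3 and 4 without 5-FU replicate 5, of dendritic cell markers 0 without PBS replicate 1, 1 without 5-FU replicate 3 or 5 and 2 without PBS replicate 2, 3 or 4, and both were 0 with 5-FU replicates 3 and 5 both left out. The calls of Mrc1 and Cd163 held in all 9 fits that left out 1 tumor, while that of Adgre1 was lost without PBS replicate 1 or 2 or 5-FU replicate 3 (adjusted p 0.0512 to 0.0593) and that of Itgax was lost without PBS replicate 1 or 2 or 5-FU replicate 3 (adjusted p 0.0562 to 0.0631).

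Of 12 monocyte markers 2 rose and 1 fell, against 9.98% and 13% of all genes, and the number that rose was 0 without PBS replicate 1 or 5-FU replicate 3 and 1 without PBS replicate 2 or 5-FU replicate 5, but 4 by DESeq2. S100a4, also made by tumor cells and fibroblasts, fell, with 757, 1049, 528 and 557 CPM in the PBS tumors and 253, 314, 189, 276 and 216 CPM in the 5-FU tumors (log2 fold change -1.53 ± 0.27 (SE), adjusted p = 0.0027). Ly6c2 (3.92 to 11.3 CPM in PBS and 6.29 to 32.2 CPM in 5-FU, 1.02 ± 0.67, adjusted p = 0.253) and Ccr2 (79.1 to 190.4 CPM in PBS and 67.1 to 254 CPM in 5-FU, 0.16 ± 0.45, adjusted p = 0.816), markers of inflammatory monocytes, did not pass. Of 13 neutrophil markers tested 4 rose, against 9.98%, and none fell, and the 6 untested ones, Ly6g, Camp, Ngp, Elane, Mpo and Stfa2l1, were below the filter. Those that rose were chemokines, Cxcl1, Cxcl2 and Cxcl5, and the G-CSF receptor Csf3r. Cxcl1 was at 1.68, 3.84, 1.28 and 1.54 CPM in the PBS tumors and 2.04, 47.7, 14.7, 7.81 and 47 CPM in the 5-FU tumors (log2 fold change 3.51 ± 0.86 (SE), adjusted p = 0.0103). The granule genes S100a8 (0.452 to 3.07 CPM in PBS and 0.917 to 2.17 CPM in 5-FU, 0.29 ± 0.61, adjusted p = 0.742) and S100a9 (0.56 to 4.8 CPM in PBS and 0.175 to 1.65 CPM in 5-FU, -0.94 ± 0.75, adjusted p = 0.356) were at a few CPM or less and did not pass. Those called higher among the neutrophil markers numbered 1 without PBS replicate 1 and 2 without PBS replicate 4 or 5-FU replicate 5. The calls of S100a4 and Cxcl1 held in all 9 fits that left out 1 tumor.

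Part of the stromal genes was higher. Of 27 fibroblast and collagen genes 11 rose, against 9.98% of all genes, 16 did not pass and none fell, with a median log2 fold change of 0.93. Col1a1, the main chain of type I collagen, was at 607, 281, 1689 and 1478 CPM in the PBS tumors and 2612, 1853, 2572, 3593 and 3225 CPM in the 5-FU tumors (log2 fold change 1.45 ± 0.42 (SE), adjusted p = 0.0201), with PBS replicates 1 and 2 far below PBS replicates 3 and 4. Pi16, a marker of fibroblasts around vessels, was at 39.5, 36, 24.4 and 48.6 CPM in the PBS tumors and 157, 116, 284, 181 and 251 CPM in the 5-FU tumors (log2 fold change 2.41 ± 0.50 (SE), adjusted p = 0.00574). Pdgfra, a receptor of fibroblasts, was at 92.3, 56.5, 111 and 134 CPM in the PBS tumors and 185, 109, 209, 187 and 284 CPM in the 5-FU tumors (log2 fold change 0.99 ± 0.30 (SE), adjusted p = 0.0258). The groups overlapped in Pdgfra and not in the other 2. Acta2, the smooth muscle actin of myofibroblasts, did not pass (13.4 to 16.2 CPM in PBS and 18.3 to 51 CPM in 5-FU, 0.95 ± 0.59, adjusted p = 0.23). Of 16 endothelial markers 7 rose, 9 did not pass and none fell, with a median of 1.00. Vwf, von Willebrand factor, was at 1.64, 1.27, 2.27 and 4.06 CPM in the PBS tumors and 13.3, 6.63, 34.4, 13.5 and 24.2 CPM in the 5-FU tumors (log2 fold change 2.98 ± 0.70 (SE), adjusted p = 0.00859), and Selp, P-selectin, at 1.81, 1.66, 1.42 and 2.93 CPM in the PBS tumors and 7.22, 4.76, 26.1, 10.6 and 23.7 CPM in the 5-FU tumors (log2 fold change 2.88 ± 0.60 (SE), adjusted p = 0.00585). Both separated the groups and were highest in 5-FU replicate 3 or 5. Kdr, the VEGF receptor, did not pass (6.49 to 21.1 CPM in PBS and 22.2 to 43.6 CPM in 5-FU, 1.02 ± 0.46, adjusted p = 0.104).

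The number of higher fibroblast genes was 2 without PBS replicate 1 or 2 and 7 without 5-FU replicate 5, and 7 with the length correction. Counts of higher endothelial markers were 2 without PBS replicate 2, 3 without PBS replicate 1 or 5-FU replicate 3 or 5 and 4 without PBS replicate 4. Both were 0 with 5-FU replicates 3 and 5 both left out. The calls of Pi16, Vwf and Selp held in all 9 fits that left out 1 tumor, while that of Col1a1 was lost without PBS replicate 1 or 2 (adjusted p 0.0594 to 0.0746) and that of Pdgfra was lost without PBS replicate 1 or 2 or 5-FU replicate 5 (adjusted p 0.0731 to 0.1), and the length correction ended that of Pdgfra (log2 fold change 0.62, adjusted p = 0.0981). Of 9 mast cell and eosinophil markers 6 rose, against 9.98% of all genes, and none fell. Cpa3, a mast cell protease, was at 7.84, 8.18, 3.99 and 6.84 CPM in the PBS tumors and 16.2, 20.4, 66.2, 14.4 and 37.7 CPM in the 5-FU tumors (log2 fold change 2.21 ± 0.69 (SE), adjusted p = 0.0273). Higher mast cell markers numbered 0 without PBS replicate 1 or 2, 1 without PBS replicate 3 or 5-FU replicate 3 or 5 and 2 without PBS replicate 4. In fits that left out 1 tumor at a time, the call of Cpa3 was lost without PBS replicate 1, 2 or 3 or 5-FU replicate 3 or 5 (adjusted p 0.0549 to 0.0743). Of 8 erythroid and platelet markers 1 rose, near the 9.98% of all genes, and none fell, but 3 fell without 5-FU replicate 5 and with the replicate block. The one that rose was Pf4, platelet factor 4, at 5.79, 8.04, 3.66 and 4.6 CPM in the PBS tumors and 22.9, 17.4, 70, 15.6 and 37.7 CPM in the 5-FU tumors (log2 fold change 2.57 ± 0.69 (SE), adjusted p = 0.015), which tumor macrophages can also make.

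Levels of skeletal muscle and adipocyte markers differed between samples, and the source of their RNA was not tested. The 17 skeletal muscle markers in the matrix, 16 of them tested, summed to 146 to 262 CPM in PBS tumors and to 17.6 to 2480 CPM in 5-FU tumors, and the 8 adipocyte markers to 32.1 to 52.1 CPM and 18.3 to 469 CPM. 5-FU replicate 2 was the lowest of all tumors in both lists, and the other 5-FU tumors were the highest. Myh4, a myosin of fast muscle, was at 2.46, 7.87, 13.1 and 22.6 CPM in the PBS tumors and 349, 0.599, 304, 222 and 324 CPM in the 5-FU tumors (log2 fold change 4.38 ± 2.11 (SE), adjusted p = 0.127), Acta1, skeletal actin, at 65.5, 60.8, 77.5 and 87.2 CPM in the PBS tumors and 390, 3.84, 611, 348 and 465 CPM in the 5-FU tumors (log2 fold change 2.32 ± 1.73 (SE), adjusted p = 0.32), and Adipoq, the adipocyte hormone adiponectin, at 5.05, 9.42, 2.73 and 4.5 CPM in the PBS tumors and 19.1, 1.34, 18.1, 16.7 and 36 CPM in the 5-FU tumors (log2 fold change 1.75 ± 1.22 (SE), adjusted p = 0.286). None of these 3 passed. The genes that did were Ttn, titin (2.51 to 12.8 CPM in PBS and 1.48 to 149 CPM in 5-FU, 4.01 ± 1.37, adjusted p = 0.0398), and Adrb3, a receptor of fat cells (0.0411 to 0.315 CPM in PBS and 0.212 to 3.2 CPM in 5-FU, 3.10 ± 0.88, adjusted p = 0.0189). The call of Ttn was lost in 7 of the 9 fits that left out 1 tumor (adjusted p 0.0551 to 0.121) and with the length correction (adjusted p = 0.122), and that of Adrb3 without PBS replicate 1 or 2 (adjusted p 0.0592 to 0.0646). With only the PBS and 5-FU tumors in the model, 8 muscle and 7 adipocyte markers passed. The keratinocyte markers summed to 0.957 to 6.96 CPM in PBS tumors and 0.741 to 13.3 CPM in 5-FU tumors, and none of 7 passed. How much muscle, fat or skin in a sample contributes to the stromal and lymphocyte results was not tested.

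The 5-FU tumors were then compared directly with the ICB tumors in the same 4-group model. Between them 1535 genes were DEGs, 8.57% of those tested, with 508 (2.84%) higher and 1027 (5.73%) lower in 5-FU tumors. The interferon gamma list was lower in 5-FU than in ICB tumors in 20 of 26 members, osteoclast genes in 16 of 20, glycolysis in 14 of 17, lysosome genes in 14 of 31 and hypoxia genes in 11 of 21. Fibroblast genes were higher in 12 of 27 and immediate-early genes in 4 of 29. Cholesterol synthesis was lower than in ICB tumors in only 4 of 25, and no DNA replication or mitosis gene was called. Against the same PBS tumors, the median log2 fold change of the cholesterol list was -1.27 in ICB and -1.60 in 5-FU tumors. In the same order, it was -0.79 and -0.49 for DNA replication, and -1.08 and -0.56 for mitosis. The genes named below were chosen after their values were seen. On the CPM scale of both matrices normalized together, Nos2 was at 166, 447, 234, 276 and 479 in the ICB tumors and 6.58, 7.55, 19.7, 2.29 and 8.68 in the 5-FU tumors (log2 fold change -5.17 ± 0.60 (SE), adjusted p = 0.000157). Gzmb was at 118, 148, 99, 91.1 and 101 in ICB and 23.1, 34.6, 28.4, 15.6 and 21.1 in 5-FU tumors (log2 fold change -2.20 ± 0.26 (SE), adjusted p = 0.000157). Cd274 was at 162, 253, 153, 159.7 and 208 in ICB and 33.5, 52.4, 79.9, 17.2 and 61.6 in 5-FU tumors (log2 fold change -1.95 ± 0.30 (SE), adjusted p = 0.000877). Each 5-FU tumor was below each ICB tumor in these 3 genes. Pfkl was at 156, 202, 151, 200.1 and 173 in ICB and 76.3, 76.7, 67.5, 67.7 and 72.2 in 5-FU tumors (log2 fold change -1.31 ± 0.13 (SE), adjusted p = 4.75e-05), and Car9 at 10.8, 15.8, 12, 17.3 and 7.75 in ICB and 2.38, 1.62, 2.58, 1.62 and 2.55 in 5-FU tumors (log2 fold change -2.58 ± 0.34 (SE), adjusted p = 0.000309). Col6a2, a collagen VI chain, was on the other side, with 458, 448, 602, 224 and 342 in ICB and 1697, 1025, 1398, 2517 and 1758 in 5-FU tumors (log2 fold change 1.99 ± 0.31 (SE), adjusted p = 0.00106). The number of DEGs between 5-FU and ICB tumors was 808, 962 and 726 without 5-FU replicates 1, 2 and 4, and 819 and 916 without ICB replicates 2 and 5.

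Against cisplatin, the other chemotherapy, 67 of 18521 genes were DEGs (0.362%), with 17 (0.0918%) higher and 50 (0.27%) lower in 5-FU tumors, and 2876 genes had an unadjusted p under 0.05. Cholesterol synthesis was lower in 5-FU than in cisplatin tumors in 11 of 25 members, osteoclast genes in 5 of 20, hypoxia genes in 4 of 21 and glycolysis in 3 of 17. Fdps was at 149.7, 361, 244 and 172 in the cisplatin tumors and 53.6, 95.8, 39.1, 60.8 and 59 in the 5-FU tumors (log2 fold change -1.91 ± 0.38 (SE), adjusted p = 0.0247). Car9 was at 13.7, 27.9, 25.7 and 15.9 in cisplatin and 2.38, 1.62, 2.58, 1.62 and 2.55 in 5-FU tumors (log2 fold change -3.27 ± 0.51 (SE), adjusted p = 0.00514). Atp6v0d2 was at 41.6, 107, 65.2 and 65.3 in cisplatin and 12.5, 20.5, 18.8, 21.4 and 13.7 in 5-FU tumors (log2 fold change -2.0 ± 0.31 (SE), adjusted p = 0.00514). Every 5-FU tumor was below every cisplatin tumor in these 3 genes. Higher in 5-FU were 4 of 29 immediate-early genes and 2 of 28 of the NF-kB list. Nr4a1 was at 11.1, 13.1, 14.2 and 11.9 in cisplatin and 16.7, 225, 92.1, 77.5 and 229 in 5-FU tumors (log2 fold change 3.35 ± 0.62 (SE), adjusted p = 0.019), and Ccl7 at 22.2, 18.4, 19.2 and 33.6 in cisplatin and 48.2, 109.7, 158, 59.6 and 163 in 5-FU tumors (log2 fold change 2.21 ± 0.42 (SE), adjusted p = 0.02). Bbc3, the 1 p53 target called, was at 16.1, 17.9, 16.4 and 15.9 in cisplatin and 10.3, 9.28, 7.48, 8.65 and 7.03 in 5-FU tumors (log2 fold change -0.96 ± 0.21 (SE), adjusted p = 0.0456). The number of DEGs against cisplatin was 13, 29 and 11 without 5-FU replicates 3, 4 and 5, and 1, 6 and 15 without cisplatin replicates 2, 3 and 4, and it was 943 with only the 5-FU and cisplatin tumors in the model. The 5-FU tumors are shared by all comparisons given here, and the PBS tumors were part of the models of the latter 2, where they add to the estimate of the spread.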

How the data were processed

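RNA of whole tumors was sequenced as 100-base single-end reads on a HiSeq. The library kit, the use of strand and sequencing batches are not given in the sources used here, so overlapping and antisense genes could share counts. The authors demultiplexed with bcl2fastq 2.20.0.422, pseudoaligned reads to GRCm38/mm10 with kallisto 0.46.0 and used tximport to get gene-level values. They deposited raw estimated counts in 2 matrices, both with the same PBS and ICB tumors. Rounding to whole numbers before the tests touched 23.4% of values. 55315 of 55341 gene names matched GENCODE M21, and 26 did not.

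Genes were filtered by filterByExpr, normalized by TMM and compared with edgeR 4.0.16 (quasi-likelihood test, limma 3.58.1, R 4.3.3) in a model of the 4 groups of the 5-FU matrix. 5-FU against cisplatin used both matrices joined, 6 groups. The standard error is the absolute log2 fold change over the root of the F statistic. Adjusted p-values are Benjamini-Hochberg over all genes tested, and DEGs also had an absolute log2 fold change over 0.5. CPM are TMM-normalized. A prior count of 2 was used only for log2 CPM, and the fitted log2 fold changes used the default prior count of the edgeR fit. Changes given as N-fold are 2 to the power of the absolute fitted log2 fold change. Each sample is 1 mouse, and a floor of 3 counts covers counting error only. Of 39 gene lists with 812 members, 811 were in the matrix. Members and lists were chosen with earlier results of these data known. Named genes were the 8 largest increases and 8 largest decreases among DEGs (mean count of at least 50, no overlap, protein-coding), anchor genes marked within the lists, up to 4 DEGs per list and direction with the smallest p, and Tyms. Asns, Cd274, Dut, Ebp, Fdps, Gapdh, Gbp2, Igtp, Insig1, Nos2, Ocstamp, Rsad2 and Vcam1 fell outside it and were chosen after their values were seen, as were genes that were only counted as untested. Some members are counted in their lists but are not reported here by name. Transcript lengths are those of the longest transcript in GENCODE M21. Promoters came from RefSeq (GRCm38.p6), with an entry for 12270 tested genes.

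Alternatives were DESeq2 1.42.0, its size factors, other filters, a replicate block, a model of the compared groups, no fold change threshold and each tumor left out. The procedure was tested on simulated data. Scripts ran in Python 3.11.15 with pandas 2.3.3, numpy 2.4.6 and matplotlib 3.10.9. The 5-FU+ICB tumors entered the model only, and the cisplatin+ICB tumors entered only the joined one.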

Additional observations from a re-analysis of the deposited data

Results flagged for a closer look

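Of 360 tests of a named gene in 1 group for a single tumor far from the others (Dixon's gap over range on log2(CPM + 1)), 15 passed, and chance flags about 1 in 20 groups. In 5-FU replicate 2, Acta1 (0.884), Adipoq (0.732), Myh4 (0.917) and Ttn (0.934) were low. In 5-FU replicate 3, mt-Co1 (0.73) and mt-Nd4 (0.783) were high. Fosb was low in 5-FU replicate 1 (0.728), and Il1r1 was high in 5-FU replicate 5 (0.749). In PBS replicate 2, Ctla4 (0.881), Cxcl9 (0.883), Pdcd1 (0.84) and S100a9 (0.935) were high. In PBS replicate 1, Cd274 was low (0.906) and Dpyd high (0.849), and in PBS replicate 3, H2-K1 was low (0.833). The muscle and adipocyte genes share 1 tumor, as do the mitochondrially encoded genes, so their flags are not independent.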

How the results depend on the processing

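Each tumor left out in turn gave 1436 to 4741 DEGs between 5-FU and PBS (629 to 1922 higher, 755 to 2819 lower), 726 to 2263 between 5-FU and ICB (220 to 596 higher, 506 to 1667 lower) and 1 to 77 between 5-FU and cisplatin (0 to 40 higher, 1 to 40 lower). The lowest counts came without PBS replicate 2, 5-FU replicate 4 and cisplatin replicate 2. For 5-FU against PBS, no filter on low counts gave 2469 DEGs (1358 higher, 1111 lower) and shifted the median of all genes by 0.102 on the log2 scale. With 5-FU replicates 3 and 5 both left out, 347 DEGs were called (119 higher, 228 lower), and with the length correction 3331 (1431 higher, 1900 lower), of which 2646 were shared with the 4115. The share of higher genes among the DEGs was 43.5%, but 54.5% by DESeq2 (2646 higher, 2212 lower), 55% in a model of these 2 groups (2141 higher, 1753 lower) and 55% without the filter, so that which direction held more genes depended on these choices. Without PBS replicate 1 it was 32.8%.

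DESeq2 called 2311 DEGs between 5-FU and ICB (862 higher) and 668 between 5-FU and cisplatin (490 higher, 178 lower). A model of the compared groups alone called 2316 (995 higher) and 943 (509 higher, 434 lower). The replicate numbers of the labels do not pair the tumors: deviations of same-numbered PBS and 5-FU tumors had correlations of -0.0876, -0.0168, -0.203 and 0.11. With the replicate number as a block, 3339 DEGs (1288 higher, 2051 lower) were called between 5-FU and PBS, 1403 between 5-FU and ICB and 5 between 5-FU and cisplatin (0 higher, 5 lower), and the count of higher T cell markers went from 11 to 4. The causes were not tested. Of the 130 named genes called, 41 kept their call in each of the 17 or 18 alternatives in which they were tested, and 52 lost it in at least 1 fit with a tumor left out and none was called in the opposite direction. Of the 48 list counts above 0 (39 lists, both directions), 43 fell by over 1.5 times with 5-FU replicates 3 and 5 both left out, 35 of them to 0, and such falls numbered 17 with the block, 15 without the filter, 7 with the length correction, 3 in the model of these 2 groups, where 5 others rose by as much, and 1 with the size factors of DESeq2. By DESeq2 itself 4 rose by as much. Over all alternatives the count of lower members was 21 to 25 for cholesterol synthesis and 10 to 11 for glycolysis, and the count of higher members was 17 to 23 for the interferon gamma response. Many genes of B cells, granulocytes and keratinocytes had a few counts or fewer in PBS tumors, and their part in the low counts of calls was not tested.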
